A study of Mus musculus with 24 samples.

Results

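Livers given the AKT and NRas plasmids and saline (SB/AKT/NRas + saline, n = 4) were compared with livers given the transposase plasmid and saline (SB + saline, n = 4), gene by gene. These 8 livers were chosen by the titles of their samples out of the 24 livers of the series. Every mouse was a male C57BL/6JAusb animal of 14 to 15 weeks whose liver cells took up plasmid by hydrodynamic tail vein injection. The SB/AKT/NRas + saline group received 0.8 µg of the Sleeping Beauty (SB) plasmid with 10 µg of a plasmid for myristoylated AKT (myr-AKT) and 10 µg of a plasmid for NRasV12, the active form of NRas. The SB + saline group received 0.8 µg of the SB plasmid with neither oncogene. Both groups then had 10 to 11 intraperitoneal injections of saline, which began on days 8 to 10 and ran over 5 to 6 weeks. Below, these are called AKT/NRas livers 1 to 4 and SB livers 1 to 4, by the replicate number of the label. A further group, SB/AKT/c-Met + saline (AKT/c-Met livers, n = 3), is used at the end.

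AKT is a kinase downstream of insulin and growth factor receptors that drives glucose uptake, lipid synthesis and protein synthesis, and myristoylation holds it at the membrane in its active state. NRas is a GTPase that passes growth signals to the RAF, MEK and ERK kinases. ERK in turn switches on early response genes, cyclin D1 and the phosphatases that shut the pathway down. Hydrodynamic injection forces plasmid into a fraction of hepatocytes, and the SB transposase pastes the oncogene cassettes into their genome. The model therefore mixes cells that carry the oncogenes with hepatocytes that do not and with every other cell type of the liver. NRasV12 stands under the CAGGS promoter, which is not specific to any cell type. In RNA from whole liver, fewer cells of a type and less RNA per cell cannot be told apart.

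The values are molecule counts per gene from sequencing that starts at the 3′ end of transcripts, so that levels are compared between livers and not between genes. Libraries held 2480622 to 2949953 counts in the AKT/NRas livers, against 2152510 to 3060239 in the SB livers. Levels are given as CPM, the usual depth-scaled count, after TMM scaling, in which each library is rescaled on the genes that change least. The TMM factors were 0.846, 1.16, 1.19 and 1.16 in the AKT/NRas livers, against 0.772 to 0.818 in the SB livers. Counts from the mitochondrial genome made up 5.8% to 13.3% of the AKT/NRas libraries, against 11.5% to 14.0% of the SB libraries. The share of records that the authors could assign to a gene was 13.8%, 18.9%, 23.9% and 17.7% in the AKT/NRas livers, against 15.6% to 16.7% in the SB livers. The part of these differences in the results was not tested.

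The transcript of the NRas plasmid, counted as human NRAS, checked the labels. It had 28, 159, 768 and 203 counts in AKT/NRas livers 1 to 4, against 0, 2, 0 and 2 counts in the SB livers. In CPM this was 12.3, 55.3, 218 and 66.1 CPM in the AKT/NRas livers, against 0, 1.14, 0 and 0.856 CPM in the SB livers (log2 fold change 7.49 ± 0.91, edgeR adjusted p = 5.31e-05, and 7.83 ± 0.74 without AKT/NRas liver 1). Every AKT/NRas liver lay above every SB liver, and AKT/NRas liver 1 had the lowest and liver 3 the highest level. Mouse Nras, the endogenous gene (ENSMUSG00000027852, chromosome 3, 103058285 to 103067914), had 42.2, 48.4, 59.1 and 41.98 CPM in the AKT/NRas livers, against 31.2, 33.5, 29.3 and 24.4 CPM in the SB livers (log2 fold change 0.70 ± 0.19, edgeR adjusted p = 0.0207, and 0.74 ± 0.20 without AKT/NRas liver 1). Mouse Akt1 (ENSMUSG00000001729, chromosome 12, 112653821 to 112674884) had 15.8, 33.8, 63.1 and 42.96 CPM in the AKT/NRas livers, against 18.8, 17.6, 15.2 and 18.0 CPM in the SB livers, with only AKT/NRas liver 1 among the SB livers (log2 fold change 1.17 ± 0.27, edgeR adjusted p = 0.00745, and 1.41 ± 0.23 without AKT/NRas liver 1). The reference genome of the counts had no entry for the AKT plasmid, so reads from it and from mouse Akt1 cannot be told apart. Whether some reads of the NRas plasmid were counted under mouse Nras was not tested. For Nras the edgeR adjusted p was 0.115 without AKT/NRas liver 3 and 0.0745 without SB liver 4. For Akt1 the edgeR adjusted p was 0.0719 without AKT/NRas liver 3.

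AKT/NRas liver 1 also stood apart across the genome. On the 500 genes that differ most between a pair of livers, its mean distance was 3.01 to the other AKT/NRas livers and 2.093 to the SB livers. Livers 2, 3 and 4 had mean distances of 2.224, 2.701 and 2.324 within their group, against 2.949, 3.926 and 3.097 to the SB livers. Genes that passed the test against SB + saline and the counts of lists are therefore also given without AKT/NRas liver 1. Counts given without other livers leave out 1 liver at a time. That liver was picked on its human NRAS count, so its omission is a description and no separate test.

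Of 53467 genes, 19381 reached 0.5 CPM in at least 2 of the 24 livers and were tested with edgeR. A called gene has an adjusted p under 0.05 and a log2 fold change beyond 1 in either direction. In the AKT/NRas livers 1168 genes (6.03%) were called, 913 of them higher (4.71%) and 255 lower (1.32%). Without AKT/NRas liver 1, 1978 genes were called (10.2%), with 1336 higher (6.91%) and 642 lower (3.32%), and 1155 of them were among the 1168. Without AKT/NRas liver 3, the liver with the most human NRAS, 453 genes were called (2.36%), 387 higher (2.02%) and 66 lower (0.344%). Without SB liver 1 the count was 738, and omission of each other liver gave 781 to 923. In all 8 omissions, 432 of the 1168 genes kept an adjusted p under 0.05, 358 of them higher and 74 lower. The livers of both groups did not overlap for 983 genes that were higher (5.07%) and 827 that were lower (4.27%) in the AKT/NRas livers.

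The share of increases was 78.2% with TMM, 78.6% of 1170 genes with RLE size factors and 95.2% of 2241 genes with library size alone. By another test, limma-voom, it was 61% of 1011 genes. Library size alone moved the median log2 fold change of all genes to 0.504, where TMM put it at 0.073. Decreases of a group of genes are therefore given with the count under library size alone.

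Genes were also read in 47 lists of known function. They name 1398 genes, of which 1350 were found among the counted genes and passed the filter on low counts. A list member rose or fell if its edgeR adjusted p was under 0.05, whatever its fold. In 33 instances 0 members of a list passed in a given direction, and there DESeq2 passed at most 1 member, limma-voom at most 2 and edgeR at most 4 at an unadjusted p under 0.05. By the same rule 1629 of all 19381 genes (8.41%) rose or fell, of which 1078 rose (5.56%) and 551 fell (2.84%), with 1650 (8.54%) and 1268 (6.56%) without AKT/NRas liver 1, and 550 genes (2.87%) rose or fell without AKT/NRas liver 3. Fold changes are log2 values ± standard error. Where no SB liver had a count, the fold is given as a lower bound against 3 counts over the group. Where the SB livers had 1 to 3 counts in all, the ratio of scaled counts is given with a 95% interval that covers counting error only.

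**Figure D1:**
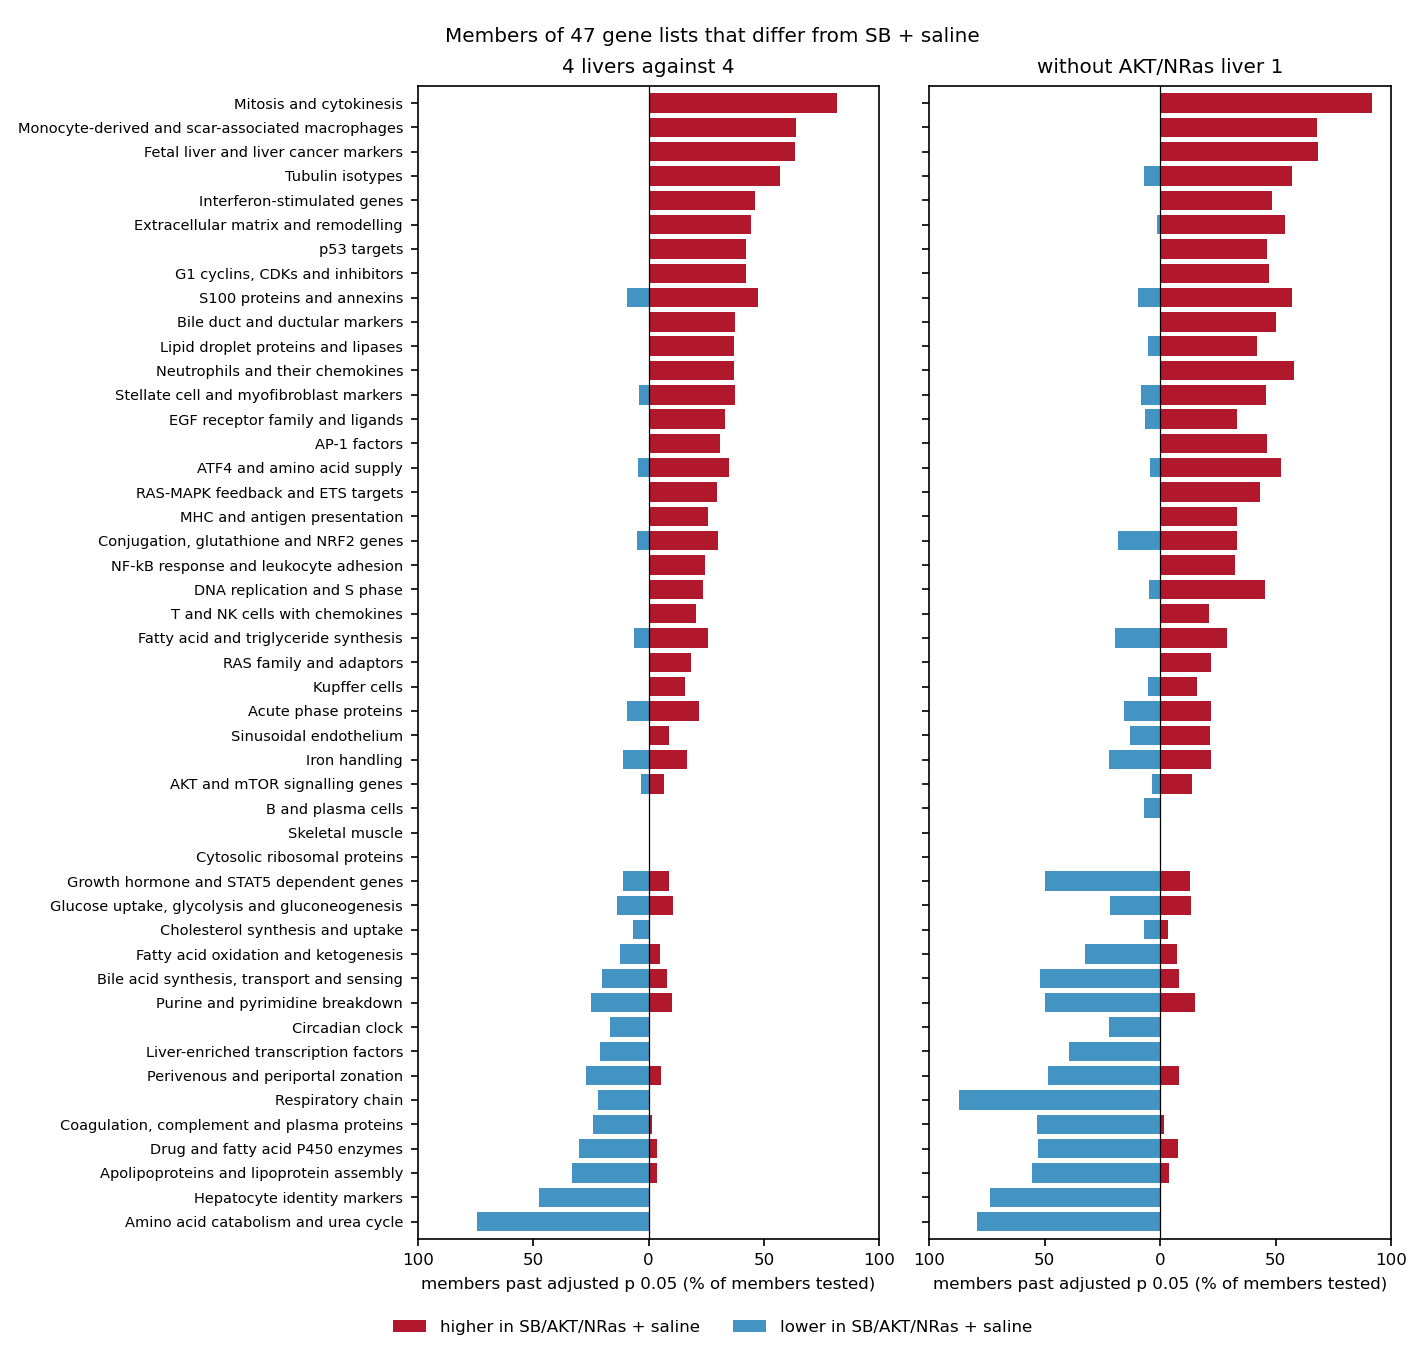
Members of each of 47 gene lists that rose (red, right of 0) or fell (blue, left of 0) in SB/AKT/NRas + saline relative to SB + saline, as a percentage of the members tested, with all livers (left panel) and without AKT/NRas liver 1 (right panel). Mitosis and cytokinesis stands at the top of the left panel with 40 of 49 members up, and amino acid catabolism and urea cycle at the bottom with 43 of 58 down.

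The genes with the smallest p among those that rose were Ly6d, Cidea, Gdf15, Gstm3, human NRAS, S100a11, Ifi27l2b, Akr1c18, Serpina7, Afp, Gpc3 and Isg15. Ly6d, a surface protein of the Ly6 family (ENSMUSG00000034634, chromosome 15, 74762056 to 74763620), had 69.5, 619, 933 and 742 CPM in the AKT/NRas livers, against 9.42, 15.9, 6.82 and 6.42 CPM in the SB livers (log2 fold change 5.97 ± 0.64, edgeR adjusted p = 7.65e-06, and 6.33 ± 0.50 without AKT/NRas liver 1). Livers 2 to 4 were at 619 CPM or more, and liver 1 stood between them and the SB livers. Gdf15, a hormone released by stressed cells (ENSMUSG00000038508, chromosome 8, 70629393 to 70632456), had 11.4, 20.2, 29.0 and 45.2 CPM in the AKT/NRas livers, against 1.28, 2.27, 3.61 and 4.28 CPM in the SB livers (log2 fold change 3.18 ± 0.39, edgeR adjusted p = 5.31e-05, and 3.41 ± 0.36 without AKT/NRas liver 1). Serpina7, the thyroxine-binding globulin (ENSMUSG00000031271, chromosome X, 139079257 to 139085236), had 60.7, 149, 145 and 154 CPM in the AKT/NRas livers, against 25.3, 25.0, 27.3 and 30.8 CPM in the SB livers (log2 fold change 2.23 ± 0.31, edgeR adjusted p = 0.000146, and 2.44 ± 0.28 without AKT/NRas liver 1). In liver 1 it was already above every SB liver, and livers 2 to 4 were close to each other. Akr1c18, an aldo-keto reductase that inactivates progesterone (ENSMUSG00000021214, chromosome 13, 4132615 to 4150654), had 10.1, 112, 428 and 131 CPM in the AKT/NRas livers, against 0, 1.14, 0.802 and 0.428 CPM in the SB livers (log2 fold change 8.14 ± 1.11, edgeR adjusted p = 0.000133, and 8.52 ± 0.92 without AKT/NRas liver 1).

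Taken by the same rule, the genes that fell with the smallest p were Arg1, Cyp4f15, Rdh16f2, Dcxr, 2010315B03Rik, AC124709.3, Sult1b1, Dbt, Slc25a13, Dmgdh, Upb1 and Mpzl2. AC124709.3 is annotated as a processed pseudogene, so its counts are uncertain. Dcxr, which reduces xylulose in the uronate cycle (ENSMUSG00000039450, chromosome 11, 120725399 to 120727281), had 129, 71.3, 49.4 and 61.8 CPM in the AKT/NRas livers, against 227, 209, 149 and 201 CPM in the SB livers (log2 fold change −1.34 ± 0.24, edgeR adjusted p = 0.0011, and −1.70 ± 0.22 without AKT/NRas liver 1). For Dcxr liver 1 came closest to the SB livers. Cyp4f15, a fatty acid hydroxylase (ENSMUSG00000073424, chromosome 17, 32685627 to 32703352), had 39.6, 33.4, 17.0 and 31.6 CPM in the AKT/NRas livers, against 88.6, 80.2, 56.9 and 71.1 CPM in the SB livers (log2 fold change −1.30 ± 0.22, edgeR adjusted p = 0.000838, and −1.46 ± 0.24 without AKT/NRas liver 1). Rdh16f2, a relative of retinol dehydrogenase (ENSMUSG00000074639, chromosome 10, 127866474 to 127877317), had 59.8, 21.6, 31.8 and 18.9 CPM in the AKT/NRas livers, against 93.3, 112, 101 and 94.2 CPM in the SB livers (log2 fold change −1.62 ± 0.28, edgeR adjusted p = 0.00094, and −2.06 ± 0.26 without AKT/NRas liver 1). Liver 4 was lowest there, whereas liver 3 was lowest for Dcxr and Cyp4f15.

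**Figure D2:**
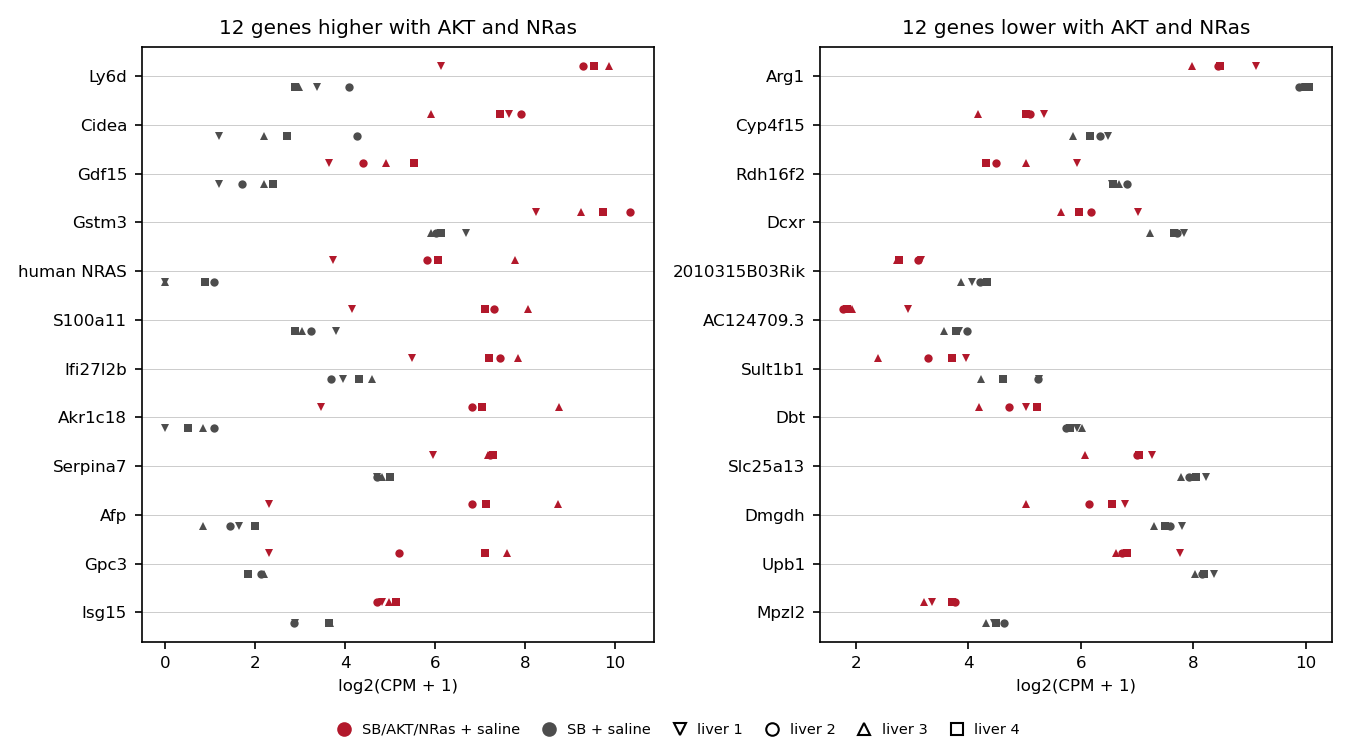
Level of the 12 genes that rose and the 12 that fell with the smallest p, as log2(CPM + 1), in the 4 SB/AKT/NRas + saline livers (red, upper row of each gene) and the 4 SB + saline livers (grey, lower row), with 1 marker shape per replicate number. The genes were chosen only among those whose livers do not overlap between the groups. AKT/NRas liver 1 (red triangle pointing down) lies nearest to the mean of the SB livers for all of them but Cidea, Isg15, Dbt and Mpzl2.

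Some of the feedback genes of RAS signalling rose and others did not pass the test. Of 37 tested members of the RAS-MAPK feedback and ETS target list, 11 rose and 0 fell (16 without AKT/NRas liver 1, 6 without AKT/NRas liver 3 and 8 to 11 without any other liver). The median log2 fold change was 1.54, or 1.24 with 4 genes at the lower bound of their fold, where all genes stood at 0.073. Among the ERK phosphatases, Dusp5, which is nuclear (ENSMUSG00000034765, chromosome 19, 53529109 to 53542431), had 0.440, 2.78, 6.53 and 4.56 CPM in the AKT/NRas livers, against 0, 0, 0 and 0.428 CPM in the SB livers (count ratio 34.96, 95% interval 5.97 to 1411, edgeR adjusted p = 0.00781, and 0.000903 without AKT/NRas liver 1). Dusp6, the cytoplasmic ERK phosphatase (ENSMUSG00000019960, chromosome 10, 99263231 to 99267489), had 40.5, 54.3, 72.7 and 74.2 CPM in the AKT/NRas livers, against 21.0, 33.5, 40.1 and 21.0 CPM in the SB livers (log2 fold change 1.07 ± 0.30, edgeR adjusted p = 0.0242, and 1.21 ± 0.30 without AKT/NRas liver 1). Dusp8, which prefers JNK and p38 as substrates (ENSMUSG00000037887, chromosome 7, 142079490 to 142095843), had 0.879, 8.003, 3.69 and 5.21 CPM in the AKT/NRas livers, against 0.428, 0, 1.20 and 0 CPM in the SB livers (log2 fold change 3.23 ± 0.70, edgeR adjusted p = 0.00491, and 3.52 ± 0.64 without AKT/NRas liver 1). For Dusp5 and Dusp6 all AKT/NRas livers lay above all SB livers, and for Dusp8 liver 1 lay among them. Spry2 (log2 fold change 1.36 ± 0.82, edgeR adjusted p = 0.342), Spry4 (log2 fold change 0.88 ± 0.62, edgeR adjusted p = 0.432) and Dusp4 (log2 fold change 1.83 ± 0.66, edgeR adjusted p = 0.0864), which also restrain the pathway, did not pass the test. For Dusp6 the edgeR adjusted p was 0.0939 without AKT/NRas liver 3, 0.075 without AKT/NRas liver 4, 0.0866 without SB liver 1 and 0.0853 without SB liver 4.

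A part of the early response factors and of the ligands of the EGF receptor family rose. Of 11 tested ETS and early response factors 2 rose (3 without AKT/NRas liver 1 and 0 without AKT/NRas liver 3). Ier3, an early response gene that sustains ERK activity (ENSMUSG00000003541, chromosome 17, 35821684 to 35822923), had 0, 9.39, 34.7 and 14.6 CPM in the AKT/NRas livers, against 0.856, 0, 1.20 and 0.856 CPM in the SB livers (log2 fold change 4.20 ± 0.87, edgeR adjusted p = 0.00341, and 4.58 ± 0.68 without AKT/NRas liver 1). Jun, the core AP-1 subunit (ENSMUSG00000052684, chromosome 4, 95049034 to 95052222), had 26.4, 91.5, 63.1 and 91.4 CPM in the AKT/NRas livers, against 12.4, 17.1, 34.1 and 26.1 CPM in the SB livers (log2 fold change 1.596 ± 0.29, edgeR adjusted p = 0.00124, and 1.84 ± 0.24 without AKT/NRas liver 1). Both stood within the SB range in liver 1. Of 13 AP-1 factors 4 rose and 0 fell (6 without AKT/NRas liver 1 and 3 to 4 without any other liver). Fos (log2 fold change 2.15 ± 0.90, edgeR adjusted p = 0.146), its usual partner, did not pass. Of 8 tested ligands of the EGF receptor family 5 rose, and of 4 receptors and 3 inhibitors 0 did, with 0 receptors higher and 1 lower at an unadjusted p under 0.05. The number over the whole list was 5 without AKT/NRas liver 1, 3 without AKT/NRas liver 4 and 4 to 5 without any other liver for the rise and 1 without AKT/NRas liver 1 or SB liver 2 and 0 without any other liver for the fall. Nrg1, a ligand of ERBB3 and ERBB4 (ENSMUSG00000062991, chromosome 8, 31814551 to 32884029), had 1.32, 16.4, 21.3 and 20.8 CPM in the AKT/NRas livers, against 0.428, 1.71, 0.802 and 0.428 CPM in the SB livers (log2 fold change 4.20 ± 0.67, edgeR adjusted p = 0.000498, and 4.54 ± 0.52 without AKT/NRas liver 1). Areg, a ligand of EGFR (ENSMUSG00000029378, chromosome 5, 91139599 to 91148432), had 0.440, 2.44, 4.55 and 1.95 CPM in the AKT/NRas livers, against 0, 0, 0 and 0 CPM in the SB livers (at least 7.60-fold higher, edgeR adjusted p = 0.00175, and 0.000137 without AKT/NRas liver 1). Tgfa, another EGFR ligand (ENSMUSG00000029999, chromosome 6, 86195223 to 86275719), had 10.1, 24.4, 22.4 and 31.6 CPM in the AKT/NRas livers, against 8.56, 11.4, 6.82 and 9.42 CPM in the SB livers (log2 fold change 1.32 ± 0.27, edgeR adjusted p = 0.00279, and 1.53 ± 0.23 without AKT/NRas liver 1). Of 27 genes of the RAS family, its adaptors and effectors 5 rose (Nras, Rras, Shc2, Mapk3 and Rassf1) and 0 fell. Of 29 listed AKT and mTOR genes 2 rose (Akt1 and Igfbp1) and 1 fell (Pdk1), against 5.56% and 2.84% of all genes. Library size alone gave 9 and 0. Pdk1 is pyruvate dehydrogenase kinase 1, a mitochondrial enzyme, and Akt1 may hold plasmid reads, so neither shows AKT signalling. The RAS family count was 6 without AKT/NRas liver 1, 2 without AKT/NRas liver 3 and 4 without any other liver. The AKT and mTOR count that rose was 4 without AKT/NRas liver 1, 0 without AKT/NRas liver 3 and 2 without any other liver. Egfr itself was not past the threshold with all livers (log2 fold change −0.96 ± 0.40, edgeR adjusted p = 0.14).

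Most genes of mitosis and cytokinesis rose. Of 49 tested genes of mitosis and cytokinesis 40 rose and 0 fell (45 without AKT/NRas liver 1 and 27 to 32 without any other liver). The members had a median log2 fold change of 3.18, or 2.73 with 6 genes at the lower bound of their fold, with all genes at 0.073. Their summed level was 116, 442, 519.9 and 497 CPM in the AKT/NRas livers, against 80.9, 79.0, 69.8 and 85.2 CPM in the SB livers. Livers 2, 3 and 4 were each at more than 440 CPM, and liver 1 was near the SB livers but above all of them. The kinesins, condensins and spindle proteins gave 29 of 32, and the kinases and their regulators 11 of 17.

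Hmmr, which binds hyaluronan and the spindle (ENSMUSG00000020330, chromosome 11, 40701395 to 40733422), had 0.879, 6.61, 12.2 and 14.6 CPM in the AKT/NRas livers, against 0, 0.568, 0 and 0.428 CPM in the SB livers (count ratio 41.4, 95% interval 11.2 to 346, edgeR adjusted p = 0.000455, and 2.33e-06 without AKT/NRas liver 1). Prc1, which bundles microtubules of the central spindle (ENSMUSG00000038943, chromosome 7, 80294450 to 80316259), had 3.96, 14.6, 20.5 and 17.2 CPM in the AKT/NRas livers, against 0.856, 0, 0.401 and 1.71 CPM in the SB livers (log2 fold change 4.13 ± 0.70, edgeR adjusted p = 0.000788, and 4.40 ± 0.65 without AKT/NRas liver 1). In liver 1 both were above every SB liver, though by a few molecules only. Top2a, which untangles chromosomes (ENSMUSG00000020914, chromosome 11, 98992943 to 99024189), had 5.72, 29.6, 37.5 and 25.7 CPM in the AKT/NRas livers, against 3.42, 3.41, 1.20 and 4.71 CPM in the SB livers (log2 fold change 2.97 ± 0.53, edgeR adjusted p = 0.00103, and 3.27 ± 0.46 without AKT/NRas liver 1). Mki67, the proliferation marker Ki-67 (ENSMUSG00000031004, chromosome 7, 135689784 to 135716361), had 1.32, 15.7, 20.2 and 29.9 CPM in the AKT/NRas livers, against 1.71, 0.568, 2.41 and 1.28 CPM in the SB livers (log2 fold change 3.42 ± 0.62, edgeR adjusted p = 0.00121, and 3.77 ± 0.48 without AKT/NRas liver 1). Liver 1 stood within the SB range for Mki67, and livers 2 to 4 were all above it. Birc5, or survivin (ENSMUSG00000017716, chromosome 11, 117849251 to 117855743), had 4.40, 18.8, 23.01 and 11.1 CPM in the AKT/NRas livers, against 2.14, 1.14, 0.401 and 2.57 CPM in the SB livers (log2 fold change 3.18 ± 0.57, edgeR adjusted p = 0.00117, and 3.44 ± 0.53 without AKT/NRas liver 1). Foxm1 (count ratio 5.07, 95% interval 1.50 to 26.6, edgeR adjusted p = 0.0876) and Mybl2 (at least 1.27-fold higher, edgeR adjusted p = 0.245), transcription factors of this program, did not pass with all livers.

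Promoters of this group are shown because a CCAAT box next to a cell cycle homology region (TTTGAA) is the textbook arrangement of genes expressed late in the cell cycle. Windows of 250 bases before to 30 bases after the RefSeq start site (GRCm38.p6) were searched on both strands, where TTTGAA and CCAAT do not overlap. A window was matched to 40 of the 49 members. TTTGAA was present in 26 of them (65%), against 17.4% of 27025 mouse promoters of the same length, and CCAAT in 29 (72.5%), against 36.6%. Both were present in 22 (55%), against 6.54% of all promoters. Of the 33 members that rose and had a window, 21 held both. These are matches of letters and do not show binding. The windows of Ckap2l (chr2:129297183-129297462, minus strand), Hmmr (chr11:40733408-40733687, minus strand) and Prc1 (chr7:80294201-80294480, plus strand) are given 5′ to 3′ in the direction of transcription, with the motifs of either strand in capitals.
Ckap2l: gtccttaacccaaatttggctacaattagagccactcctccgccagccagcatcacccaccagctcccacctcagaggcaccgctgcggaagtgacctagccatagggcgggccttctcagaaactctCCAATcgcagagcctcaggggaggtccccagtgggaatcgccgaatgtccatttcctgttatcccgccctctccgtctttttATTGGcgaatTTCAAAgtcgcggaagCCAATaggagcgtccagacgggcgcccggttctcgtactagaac
Hmmr: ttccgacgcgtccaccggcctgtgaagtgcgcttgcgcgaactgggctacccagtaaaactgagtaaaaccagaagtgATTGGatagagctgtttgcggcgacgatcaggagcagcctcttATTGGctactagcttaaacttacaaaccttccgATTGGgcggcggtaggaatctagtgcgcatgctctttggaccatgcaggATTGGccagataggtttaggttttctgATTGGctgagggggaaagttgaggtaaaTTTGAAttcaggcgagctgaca
Prc1: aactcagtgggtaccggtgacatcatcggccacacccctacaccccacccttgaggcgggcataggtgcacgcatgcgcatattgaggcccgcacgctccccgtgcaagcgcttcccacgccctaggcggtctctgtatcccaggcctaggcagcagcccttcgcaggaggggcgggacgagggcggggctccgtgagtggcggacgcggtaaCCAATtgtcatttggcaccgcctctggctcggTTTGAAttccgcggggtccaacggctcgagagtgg

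A part of the genes of DNA replication rose. Of 42 tested members 10 rose and 0 fell (19 without AKT/NRas liver 1, 5 without AKT/NRas liver 3, 6 without SB liver 3 and 7 to 9 without any other liver), at a median of 1.03, or 0.98 with 1 gene at the lower bound of their fold. Lig1, the ligase of lagging strands (ENSMUSG00000056394, chromosome 7, 13277283 to 13311433), had 5.72, 15.3, 20.7 and 16.3 CPM in the AKT/NRas livers, against 3.42, 3.41, 2.81 and 3.85 CPM in the SB livers (log2 fold change 2.12 ± 0.41, edgeR adjusted p = 0.0018, and 2.35 ± 0.37 without AKT/NRas liver 1). Mcm6, a subunit of the replicative helicase (ENSMUSG00000026355, chromosome 1, 128331590 to 128359664), had 3.52, 17.4, 17.6 and 13.99 CPM in the AKT/NRas livers, against 1.71, 0, 3.21 and 3.85 CPM in the SB livers (log2 fold change 2.51 ± 0.57, edgeR adjusted p = 0.00658, and 2.78 ± 0.52 without AKT/NRas liver 1). Rfc3, part of the clamp loader (ENSMUSG00000033970, chromosome 5, 151642756 to 151651242), had 10.1, 15.3, 15.3 and 14.6 CPM in the AKT/NRas livers, against 7.28, 4.55, 8.02 and 7.71 CPM in the SB livers (log2 fold change 0.99 ± 0.23, edgeR adjusted p = 0.00802, and 1.09 ± 0.23 without AKT/NRas liver 1). Pcna, the clamp itself, did not pass (log2 fold change 0.41 ± 0.27, edgeR adjusted p = 0.376).

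Cyclin D1 and inhibitors that oppose it both rose. Ccnd1, which opens the G1 phase (ENSMUSG00000070348, chromosome 7, 144929931 to 144939925), had 37.8, 128, 233 and 135 CPM in the AKT/NRas livers, against 29.1, 56.3, 40.1 and 27.4 CPM in the SB livers (log2 fold change 1.82 ± 0.38, edgeR adjusted p = 0.00345, and 2.11 ± 0.32 without AKT/NRas liver 1). Cdkn2b, the inhibitor p15 (ENSMUSG00000073802, chromosome 4, 89306289 to 89311032), had 3.08, 10.8, 41.8 and 9.44 CPM in the AKT/NRas livers, against 0, 0, 0.401 and 0.428 CPM in the SB livers (count ratio 81.3, 95% interval 22.2 to 676, edgeR adjusted p = 0.000311, and 5.36e-06 without AKT/NRas liver 1). Liver 1 lay above every SB liver for Cdkn2b but within their range for Ccnd1. Cdkn1a, the inhibitor p21 and a target of p53 (ENSMUSG00000023067, chromosome 17, 29090979 to 29100722), had 31.2, 98.5, 129 and 99.6 CPM in the AKT/NRas livers, against 1.71, 10.8, 22.1 and 22.7 CPM in the SB livers (log2 fold change 2.63 ± 0.49, edgeR adjusted p = 0.00149, and 2.89 ± 0.46 without AKT/NRas liver 1). Cdkn2a, the locus of p16 and p19Arf (ENSMUSG00000044303, chromosome 4, 89274471 to 89294653), had 0, 1.74, 10.5 and 4.23 CPM in the AKT/NRas livers, against 0, 0.568, 0.401 and 0 CPM in the SB livers (count ratio 20.9, 95% interval 5.52 to 177, edgeR adjusted p = 0.0178, and 0.00149 without AKT/NRas liver 1). In the list of G1 cyclins, kinases and inhibitors 8 of 19 rose and 0 fell (9 without AKT/NRas liver 1, 4 without AKT/NRas liver 3 or SB liver 4, 5 without SB liver 1 and 6 to 7 without any other liver). For Cdkn2a the edgeR adjusted p was 0.154 without AKT/NRas liver 3, 0.0643 without SB liver 1 and 0.0604 without SB liver 4.

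Among targets of p53, 11 of 26 rose and 0 fell (12 without AKT/NRas liver 1, 5 without AKT/NRas liver 3, 6 without SB liver 1, 7 without SB liver 3 or 4 and 8 without any other liver). Bax, which opens the mitochondrial membrane in apoptosis (ENSMUSG00000003873, chromosome 7, 45461697 to 45466898), had 38.7, 58.1, 74.1 and 50.1 CPM in the AKT/NRas livers, against 25.7, 27.3, 28.1 and 31.3 CPM in the SB livers (log2 fold change 0.98 ± 0.20, edgeR adjusted p = 0.00304, and 1.10 ± 0.20 without AKT/NRas liver 1). Tnfrsf10b, a death receptor for TRAIL (ENSMUSG00000022074, chromosome 14, 69767472 to 69784411), had 0.879, 3.48, 9.09 and 5.86 CPM in the AKT/NRas livers, against 0, 0, 0 and 0.428 CPM in the SB livers (count ratio 47.1, 95% interval 8.15 to 1891, edgeR adjusted p = 0.00149, and 7.14e-05 without AKT/NRas liver 1). Plk2, a kinase induced by p53 (ENSMUSG00000021701, chromosome 13, 110395046 to 110400844), had 17.1, 25.1, 49.1 and 26.7 CPM in the AKT/NRas livers, against 8.99, 11.9, 14.8 and 8.13 CPM in the SB livers (log2 fold change 1.44 ± 0.26, edgeR adjusted p = 0.00126, and 1.61 ± 0.25 without AKT/NRas liver 1). For all of these the groups did not overlap. Mdm2 (log2 fold change 0.34 ± 0.15, edgeR adjusted p = 0.168), the ligase that degrades p53, did not pass.

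Many markers of liver cancer rose, and some genes of the fetal liver did. Of 22 tested members 14 rose and 0 fell (15 without AKT/NRas liver 1, 9 without AKT/NRas liver 3 and 13 to 14 without any other liver), with a median of 3.46, or 3.23 with 1 gene at the lower bound of their fold, where all genes stood at 0.073, and 5 further members did not reach the filter on low counts. Of 17 tested liver cancer markers 12 rose (13 without AKT/NRas liver 1 and 7 without AKT/NRas liver 3), and of 5 tested fetal genes 2 rose (2 without AKT/NRas liver 1 and 2 without AKT/NRas liver 3). Afp, the fetal serum protein (ENSMUSG00000054932, chromosome 5, 90490737 to 90508907), had 3.96, 112, 422 and 139.6 CPM in the AKT/NRas livers, against 2.14, 1.71, 0.802 and 2.997 CPM in the SB livers (log2 fold change 6.45 ± 0.90, edgeR adjusted p = 0.000146, and 6.84 ± 0.66 without AKT/NRas liver 1). Gpc3, a surface proteoglycan of hepatocellular carcinoma (ENSMUSG00000055653, chromosome X, 52272426 to 52613950), had 3.96, 35.5, 193 and 137 CPM in the AKT/NRas livers, against 2.57, 3.41, 3.61 and 2.57 CPM in the SB livers (log2 fold change 4.92 ± 0.69, edgeR adjusted p = 0.000158, and 5.30 ± 0.48 without AKT/NRas liver 1). In liver 1 both were only just above the highest SB liver, and in liver 3 they were highest. H19, an imprinted RNA that is silenced after birth (ENSMUSG00000000031, chromosome 7, 142575529 to 142578143), had 0.879, 48.02, 13.6 and 31.2 CPM in the AKT/NRas livers, against 0, 0, 0.401 and 0 CPM in the SB livers (count ratio 216, 95% interval 38.4 to 8555, edgeR adjusted p = 0.00929, and 0.00136 without AKT/NRas liver 1). Spink1, a secreted trypsin inhibitor (ENSMUSG00000024503, chromosome 18, 43728069 to 43737237), had 4.40, 37.6, 504 and 42.96 CPM in the AKT/NRas livers, against 2.57, 0, 0.401 and 0.856 CPM in the SB livers (log2 fold change 7.15 ± 1.22, edgeR adjusted p = 0.000803, and 7.53 ± 1.04 without AKT/NRas liver 1). Liver 2 was highest for H19, and liver 3 for Spink1. Golm1, the Golgi membrane protein GP73 (ENSMUSG00000021556, chromosome 13, 59634626 to 59675811), had 7.03, 29.9, 72.4 and 57.6 CPM in the AKT/NRas livers, against 4.71, 2.27, 6.42 and 2.997 CPM in the SB livers (log2 fold change 3.32 ± 0.53, edgeR adjusted p = 0.000538, and 3.64 ± 0.43 without AKT/NRas liver 1). Sox4, a transcription factor of progenitor cells (ENSMUSG00000076431, chromosome 13, 28948919 to 28953713), had 10.6, 61.2, 159 and 55.3 CPM in the AKT/NRas livers, against 6.42, 4.55, 7.22 and 5.14 CPM in the SB livers (log2 fold change 3.60 ± 0.52, edgeR adjusted p = 0.000197, and 3.94 ± 0.41 without AKT/NRas liver 1).

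Bile duct markers rose in part. Of 32 tested members 12 rose and 0 fell (16 without AKT/NRas liver 1, 7 without AKT/NRas liver 3 and 8 to 11 without any other liver). Their summed level was 645, 3950.4, 10913 and 2179 CPM in the AKT/NRas livers, against 586, 653, 674 and 591 CPM in the SB livers. Without Spp1, which was the larger share of it in AKT/NRas livers 2 and 3, the sum was 547, 1463, 2331 and 1305 CPM in the AKT/NRas livers, against 541, 609, 624 and 551 CPM in the SB livers. Spp1, or osteopontin, which ducts and macrophages both make (ENSMUSG00000029304, chromosome 5, 104435118 to 104441050), had 98.5, 2488, 8582 and 874 CPM in the AKT/NRas livers, against 45.4, 43.8, 50.1 and 40.2 CPM in the SB livers (log2 fold change 6.07 ± 1.05, edgeR adjusted p = 0.000838, and 6.45 ± 0.92 without AKT/NRas liver 1). Tspan8, a tetraspanin (ENSMUSG00000034127, chromosome 10, 115816832 to 115849893), had 3.52, 64.0, 232 and 43.3 CPM in the AKT/NRas livers, against 2.14, 0.568, 1.20 and 2.14 CPM in the SB livers (log2 fold change 5.76 ± 0.94, edgeR adjusted p = 0.000552, and 6.13 ± 0.77 without AKT/NRas liver 1). Liver 3 was highest for each. Krt8, a keratin of hepatocytes and ducts (ENSMUSG00000049382, chromosome 15, 101996711 to 102004342), had 64.6, 306, 349.7 and 278 CPM in the AKT/NRas livers, against 101, 75.6, 72.2 and 74.9 CPM in the SB livers (log2 fold change 1.62 ± 0.37, edgeR adjusted p = 0.00707, and 1.93 ± 0.30 without AKT/NRas liver 1). Epcam, a surface marker of ducts (ENSMUSG00000045394, chromosome 17, 87635979 to 87651106), had 2.20, 17.7, 23.9 and 2.60 CPM in the AKT/NRas livers, against 1.28, 2.84, 2.41 and 0.428 CPM in the SB livers (log2 fold change 2.78 ± 0.82, edgeR adjusted p = 0.0329, and 3.08 ± 0.78 without AKT/NRas liver 1), and livers 1 and 4 lay within the SB range. The duct keratins Krt7 (log2 fold change 1.84 ± 0.93, edgeR adjusted p = 0.243) and Krt19 (log2 fold change 2.29 ± 1.01, edgeR adjusted p = 0.168) did not pass. For Epcam the edgeR adjusted p was 0.0893 without AKT/NRas liver 2, 0.188 without AKT/NRas liver 3, 0.0945 without SB liver 1, 0.057 without SB liver 2, 0.0627 without SB liver 3 and 0.108 without SB liver 4.

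S100 proteins and annexins, which bind calcium, and tubulins rose in part. Of 21 tested S100 proteins and annexins 10 rose (12 without AKT/NRas liver 1 and 7 to 9 without any other liver) and 2 fell (0 with library size alone), S100a1 and S100a13. The number that fell was 2 without AKT/NRas liver 1, 0 without AKT/NRas liver 2, 3 or 4 or SB liver 4, 1 without SB liver 1 or 3 and 2 without any other liver. S100a11 (ENSMUSG00000027907, chromosome 3, 93520488 to 93526287) had 16.7, 158, 266 and 137 CPM in the AKT/NRas livers, against 12.8, 8.53, 7.22 and 6.42 CPM in the SB livers (log2 fold change 4.04 ± 0.53, edgeR adjusted p = 7.74e-05, and 4.40 ± 0.38 without AKT/NRas liver 1). Anxa2, an annexin that links membranes to actin (ENSMUSG00000032231, chromosome 9, 69453620 to 69491795), had 36.5, 311, 612 and 260.0 CPM in the AKT/NRas livers, against 27.4, 26.7, 18.8 and 18.0 CPM in the SB livers (log2 fold change 3.75 ± 0.60, edgeR adjusted p = 0.000472, and 4.11 ± 0.49 without AKT/NRas liver 1). Anxa5, which binds phosphatidylserine (ENSMUSG00000027712, chromosome 3, 36448923 to 36475894), had 157, 553, 665 and 289 CPM in the AKT/NRas livers, against 74.5, 62.5, 79.8 and 75.8 CPM in the SB livers (log2 fold change 2.51 ± 0.39, edgeR adjusted p = 0.000393, and 2.76 ± 0.35 without AKT/NRas liver 1). Livers 2 to 4 were far above the SB livers, which differed little from each other. Of 14 tubulin isotypes 8 rose and 0 fell (8 without AKT/NRas liver 1, 3 without AKT/NRas liver 3, 5 without AKT/NRas liver 4 or SB liver 1 and 6 to 7 without any other liver). Tubb6 (ENSMUSG00000001473, chromosome 18, 67390717 to 67402748) had 6.16, 32.4, 40.1 and 32.5 CPM in the AKT/NRas livers, against 2.14, 2.84, 4.41 and 5.57 CPM in the SB livers (log2 fold change 2.88 ± 0.50, edgeR adjusted p = 0.000838, and 3.18 ± 0.42 without AKT/NRas liver 1). Tubb2b, a tubulin of neurons (ENSMUSG00000045136, chromosome 13, 34126748 to 34130466), had 0.879, 7.66, 12.5 and 7.49 CPM in the AKT/NRas livers, against 0, 0.568, 0 and 0 CPM in the SB livers (count ratio 69.2, 95% interval 12.1 to 2761, edgeR adjusted p = 0.00106, and 2.79e-05 without AKT/NRas liver 1).

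In lipid metabolism, some proteins of lipid droplets and some enzymes of fatty acid and triglyceride synthesis rose. Cidea, which fuses lipid droplets (ENSMUSG00000024526, chromosome 18, 67343564 to 67367794), had 198, 239.8, 58.8 and 172 CPM in the AKT/NRas livers, against 1.28, 18.2, 3.61 and 5.57 CPM in the SB livers (log2 fold change 4.63 ± 0.51, edgeR adjusted p = 7.65e-06, and 4.54 ± 0.51 without AKT/NRas liver 1). Here liver 1 stood with livers 2 and 4, and liver 3 was lowest of the group. Cidec, its relative (ENSMUSG00000030278, chromosome 6, 113424634 to 113435760), had 8.35, 43.1, 28.4 and 43.3 CPM in the AKT/NRas livers, against 2.996, 2.84, 2.005 and 5.57 CPM in the SB livers (log2 fold change 3.19 ± 0.47, edgeR adjusted p = 0.000241, and 3.48 ± 0.40 without AKT/NRas liver 1). Plin2, the main droplet coat protein of hepatocytes (ENSMUSG00000028494, chromosome 4, 86648386 to 86670060), had 492, 769.7, 908 and 787 CPM in the AKT/NRas livers, against 277, 341, 355 and 336 CPM in the SB livers (log2 fold change 1.18 ± 0.27, edgeR adjusted p = 0.00788, and 1.32 ± 0.27 without AKT/NRas liver 1). For each of these the livers of both groups did not overlap. Of 19 droplet proteins and lipases 7 rose and 0 fell (8 without AKT/NRas liver 1, 4 without AKT/NRas liver 3 and 6 without any other liver). Cd36, a fatty acid carrier of the cell membrane (ENSMUSG00000002944, chromosome 5, 17781690 to 17888801), had 115, 220.3, 294 and 229.8 CPM in the AKT/NRas livers, against 81.7, 77.9, 61.4 and 59.5 CPM in the SB livers (log2 fold change 1.62 ± 0.28, edgeR adjusted p = 0.000948, and 1.81 ± 0.27 without AKT/NRas liver 1). Scd2, a desaturase of fetal liver (ENSMUSG00000025203, chromosome 19, 44293676 to 44306864), had 4.84, 127, 287 and 206 CPM in the AKT/NRas livers, against 5.56, 5.12, 5.61 and 4.28 CPM in the SB livers (log2 fold change 4.92 ± 0.75, edgeR adjusted p = 0.000311, and 5.30 ± 0.54 without AKT/NRas liver 1), with liver 1 in the SB range. Of 31 genes of fatty acid and triglyceride synthesis and fatty acid uptake 8 rose and 2 fell (1 with library size alone). Among them 3 of 15 fatty acid, 2 of 8 triglyceride and 3 of 8 uptake genes rose, and 1, 0 and 1 fell. Without AKT/NRas liver 1 these were 3, 2 and 4 that rose and 2, 1 and 3 that fell. The number of these 31 genes that rose was 9 without AKT/NRas liver 1, 4 without AKT/NRas liver 3 or SB liver 1 or 4, 5 without AKT/NRas liver 4, 3 without SB liver 3 and 6 without any other liver. The number of these 31 genes that fell was 6 without AKT/NRas liver 1, 0 without AKT/NRas liver 2, 3 or 4, 1 without SB liver 1 or 4 and 2 without any other liver. Fasn (log2 fold change −0.12 ± 0.29, edgeR adjusted p = 0.872), Acly (log2 fold change −0.14 ± 0.29, edgeR adjusted p = 0.841) and Scd1 (log2 fold change 0.33 ± 0.27, edgeR adjusted p = 0.509), the enzymes that insulin and AKT are known to induce, were among those that did not pass.

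Some genes of fatty acid oxidation and lipoproteins fell, and few cholesterol genes passed the test. Of 29 cholesterol genes 0 rose and 2 fell, where library size alone gave 8 that rose and 0 that fell. Of all genes 2.84% fell. The median log2 fold change of the cholesterol genes was 0.155, where all genes stood at 0.073. The number of cholesterol genes that rose was 1 without AKT/NRas liver 1 or SB liver 3 and 0 without any other liver. The number of cholesterol genes that fell was 2 without AKT/NRas liver 1, 0 without AKT/NRas liver 2, 3 or 4 or SB liver 1, 1 without SB liver 4 and 2 without any other liver. Of 40 genes of fatty acid oxidation 2 rose and 5 fell (13 without AKT/NRas liver 1, 0 without AKT/NRas liver 2 or 3 or SB liver 2, 1 without AKT/NRas liver 4 or SB liver 1 or 4 and 2 without SB liver 3), and library size alone gave 3 and 0. The genes of fatty acid oxidation that rose numbered 3 without AKT/NRas liver 1 and 2 without any other liver. Fgf21, a hormone of fasting placed in that list (ENSMUSG00000030827, chromosome 7, 45613886 to 45615490), had 11.4, 20.9, 29.5 and 22.1 CPM in the AKT/NRas livers, against 1.28, 2.27, 2.41 and 2.14 CPM in the SB livers (log2 fold change 3.37 ± 0.60, edgeR adjusted p = 0.00111, and 3.55 ± 0.60 without AKT/NRas liver 1). Of 27 apolipoproteins and lipoprotein genes 1 rose and 9 fell (15 without AKT/NRas liver 1, 3 without AKT/NRas liver 2 or 4 or SB liver 2, 1 without AKT/NRas liver 3, 2 without SB liver 1 or 4 and 5 without SB liver 3), with 2 that fell under library size alone. The gene that rose was Apoa4, a protein of triglyceride-rich particles (ENSMUSG00000032080, chromosome 9, 46240696 to 46243459), which had 627, 2665, 2743 and 1912 CPM in the AKT/NRas livers, against 181, 194, 209 and 238 CPM in the SB livers (log2 fold change 3.27 ± 0.47, edgeR adjusted p = 0.000188, and 3.55 ± 0.43 without AKT/NRas liver 1). The groups did not overlap for Apoa4.

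Detoxification genes moved in both directions. Of 60 conjugation, glutathione and NRF2 genes 18 rose and 3 fell (2 with library size alone). Without AKT/NRas liver 1, 20 rose and 11 fell, and without any other liver 10 to 13 rose and 1 to 3 fell. With all livers 6 of 19 glutathione transferases, 6 of 11 genes of glutathione and NADPH supply and 5 of 10 NRF2 targets rose. Of 20 glucuronide and sulfate transferases 3 fell (7 without AKT/NRas liver 1). Gstm3, a glutathione transferase (ENSMUSG00000004038, chromosome 3, 107963696 to 107969283), had 299.9, 1296, 605 and 850.0 CPM in the AKT/NRas livers, against 102, 63.7, 58.9 and 68.9 CPM in the SB livers (log2 fold change 3.37 ± 0.43, edgeR adjusted p = 5.31e-05, and 3.63 ± 0.39 without AKT/NRas liver 1). Srxn1, which repairs oxidised peroxiredoxins and is a target of NRF2 (ENSMUSG00000032802, chromosome 2, 152105516 to 152111376), had 21.5, 82.8, 53.97 and 128 CPM in the AKT/NRas livers, against 18.0, 19.9, 17.6 and 24.4 CPM in the SB livers (log2 fold change 1.85 ± 0.34, edgeR adjusted p = 0.0015, and 2.13 ± 0.28 without AKT/NRas liver 1). G6pdx, which makes NADPH in the pentose phosphate pathway (ENSMUSG00000031400, chromosome X, 74409483 to 74429194), had 5.28, 23.3, 38.1 and 31.2 CPM in the AKT/NRas livers, against 3.85, 1.14, 8.42 and 3.42 CPM in the SB livers (log2 fold change 2.49 ± 0.43, edgeR adjusted p = 0.000838, and 2.79 ± 0.34 without AKT/NRas liver 1). Liver 2 was highest for Gstm3, liver 4 for Srxn1 and liver 3 for G6pdx. Pgd, a later enzyme of that pathway (ENSMUSG00000028961, chromosome 4, 149149991 to 149166771), had 28.1, 84.2, 96.6 and 101 CPM in the AKT/NRas livers, against 31.2, 29.0, 28.1 and 27.0 CPM in the SB livers (log2 fold change 1.43 ± 0.27, edgeR adjusted p = 0.00156, and 1.69 ± 0.20 without AKT/NRas liver 1). Reads that map to several places have a low mapping quality and were left out by the authors, so counts of the Gstm and Gsta families are uncertain.

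A part of the P450 enzymes of drug and fatty acid metabolism fell. Of 53 tested members 16 fell (28 without AKT/NRas liver 1, 4 without AKT/NRas liver 2 or 4 or SB liver 1, 3 without AKT/NRas liver 3, 8 without SB liver 2, 7 without SB liver 4 and 13 without any other liver), and 10 fell with library size alone. The 2 that rose, Cyp2a4 and Cyp2a22, are close relatives of other Cyp2a genes and are uncertain for that reason. The P450 genes that rose numbered 4 without AKT/NRas liver 1, 1 without AKT/NRas liver 2, 3 or 4 or SB liver 2, 3 or 4 and 2 without any other liver. Cyp2a4, a female-biased steroid hydroxylase (ENSMUSG00000074254, chromosome 7, 26307169 to 26315088), had 8.79, 124, 90.9 and 92.1 CPM in the AKT/NRas livers, against 8.13, 2.27, 1.604 and 2.14 CPM in the SB livers (log2 fold change 4.46 ± 0.68, edgeR adjusted p = 0.000311, and 4.81 ± 0.56 without AKT/NRas liver 1). Cyp2d22 (ENSMUSG00000061740, chromosome 15, 82370528 to 82380260) had 91.9, 59.2, 48.3 and 65.1 CPM in the AKT/NRas livers, against 164, 144, 115 and 129 CPM in the SB livers (log2 fold change −1.07 ± 0.23, edgeR adjusted p = 0.00416, and −1.28 ± 0.24 without AKT/NRas liver 1). Nr1i3, the receptor CAR that induces Cyp2b and Cyp2c genes (ENSMUSG00000005677, chromosome 1, 171213970 to 171220701), had 41.8, 33.4, 7.67 and 28.0 CPM in the AKT/NRas livers, against 106, 69.9, 65.0 and 86.1 CPM in the SB livers (log2 fold change −1.58 ± 0.35, edgeR adjusted p = 0.00587, and −1.85 ± 0.37 without AKT/NRas liver 1). The groups did not overlap for these genes. Cyp2e1, which metabolises ethanol (ENSMUSG00000025479, chromosome 7, 140763739 to 140774987), had 1526, 960.0, 238 and 686 CPM in the AKT/NRas livers, against 2427, 1947, 1530.2 and 2269 CPM in the SB livers (log2 fold change −1.26 ± 0.37, edgeR adjusted p = 0.0311, and −1.72 ± 0.37 without AKT/NRas liver 1). For Cyp2e1 the edgeR adjusted p was 0.0582 without AKT/NRas liver 2, 0.111 without AKT/NRas liver 3, 0.0889 without AKT/NRas liver 4, 0.0843 without SB liver 1, 0.0555 without SB liver 2 and 0.0766 without SB liver 4.

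With all livers, the amino acid catabolism list had the largest share that fell. Of 58 tested enzymes and carriers 0 rose and 43 fell (46 without AKT/NRas liver 1, 23 without AKT/NRas liver 3 and 31 to 39 without any other liver), and 28 fell with library size alone. The median was −0.92. For 34 all AKT/NRas livers lay below all SB livers. Of all genes 2.84% fell and 4.27% were lower without overlap. All 8 urea cycle genes fell, as did 17 of 22 enzymes for aromatic and sulfur amino acids. The summed level was 18112, 10602, 6359.6 and 11221 CPM in the AKT/NRas livers, against 25438, 23603, 21533 and 23717 CPM in the SB livers.

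Arg1, which splits arginine into urea and ornithine (ENSMUSG00000019987, chromosome 10, 24915221 to 24927484), had 554, 344, 251 and 354 CPM in the AKT/NRas livers, against 1012, 942, 974 and 1060.0 CPM in the SB livers (log2 fold change −1.41 ± 0.20, edgeR adjusted p = 0.000146, and −1.67 ± 0.19 without AKT/NRas liver 1). Cps1, the entry enzyme of the urea cycle (ENSMUSG00000025991, chromosome 1, 67123026 to 67231259), had 871, 515, 189 and 591 CPM in the AKT/NRas livers, against 1416, 1215, 1169.7 and 1180.3 CPM in the SB livers (log2 fold change −1.20 ± 0.26, edgeR adjusted p = 0.00526, and −1.54 ± 0.26 without AKT/NRas liver 1). Ass1, which makes argininosuccinate (ENSMUSG00000076441, chromosome 2, 31470207 to 31520672), had 471, 248, 121 and 255 CPM in the AKT/NRas livers, against 714, 613, 528 and 556 CPM in the SB livers (log2 fold change −1.14 ± 0.25, edgeR adjusted p = 0.00548, and −1.55 ± 0.23 without AKT/NRas liver 1). In each, liver 1 was the highest and liver 3 the lowest of the AKT/NRas livers, and no liver overlapped the SB range. Slc25a13, the mitochondrial carrier that supplies aspartate to the cycle (ENSMUSG00000015112, chromosome 6, 6041218 to 6217173), had 153, 128, 66.2 and 129.5 CPM in the AKT/NRas livers, against 297, 243, 219.7 and 263 CPM in the SB livers (log2 fold change −1.11 ± 0.21, edgeR adjusted p = 0.00168, and −1.26 ± 0.22 without AKT/NRas liver 1). Dmgdh, which breaks down dimethylglycine (ENSMUSG00000042102, chromosome 13, 93674433 to 93752833), had 109, 69.9, 31.5 and 93.4 CPM in the AKT/NRas livers, against 221, 192, 157 and 180.2 CPM in the SB livers (log2 fold change −1.31 ± 0.25, edgeR adjusted p = 0.00178, and −1.54 ± 0.26 without AKT/NRas liver 1). Ahcy, which clears S-adenosylhomocysteine (ENSMUSG00000027597, chromosome 2, 155059310 to 155074497), had 183, 60.5, 34.4 and 73.5 CPM in the AKT/NRas livers, against 283, 234, 255 and 280.0 CPM in the SB livers (log2 fold change −1.59 ± 0.34, edgeR adjusted p = 0.00392, and −2.24 ± 0.30 without AKT/NRas liver 1). The same order of livers held for these 3 genes. Gpt, alanine aminotransferase (ENSMUSG00000022546, chromosome 15, 76696764 to 76699674), had 133, 94.6, 121 and 96.7 CPM in the AKT/NRas livers, against 202, 171, 151 and 190.1 CPM in the SB livers (log2 fold change −0.68 ± 0.15, edgeR adjusted p = 0.00486, and −0.79 ± 0.15 without AKT/NRas liver 1), with liver 2 lowest. Glud1, glutamate dehydrogenase, was close to its SB level (log2 fold change −0.05 ± 0.15, edgeR adjusted p = 0.899).

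**Figure D3:**
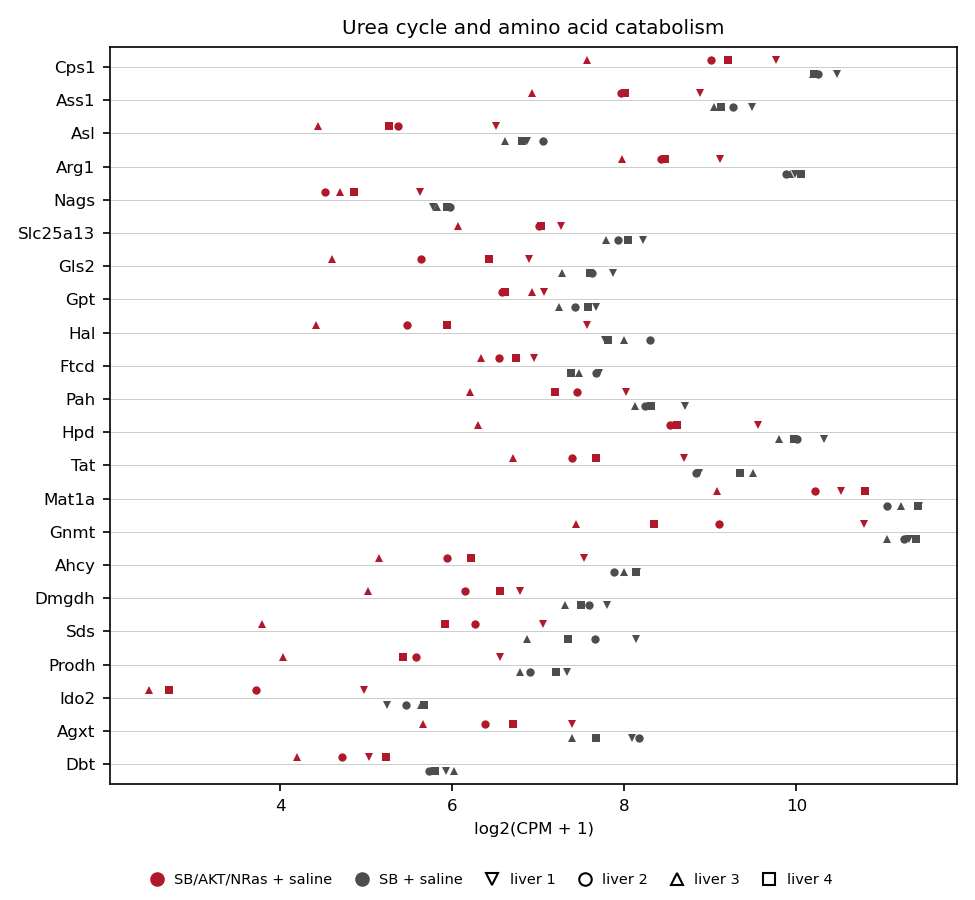
Level of enzymes and carriers of amino acid catabolism and the urea cycle as log2(CPM + 1) in the 4 SB/AKT/NRas + saline livers (red, upper row of each gene) and the 4 SB + saline livers (grey, lower row), with 1 marker shape per replicate number. In most of these genes AKT/NRas liver 3 is the lowest and liver 1 the nearest to the SB livers.

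Genes of amino acid uptake and synthesis rose in part. In the list of ATF4 targets and amino acid supply 8 of 23 rose and 1 fell (12 without AKT/NRas liver 1, 4 without AKT/NRas liver 3, 5 without SB liver 2 and 6 to 8 without any other liver for the rise). The number that fell was 1 without any 1 of the 8 livers, and 0 fell with library size alone. Slc7a11, the cystine carrier that supplies glutathione synthesis (ENSMUSG00000027737, chromosome 3, 49892526 to 50443614), had 0.440, 11.1, 13.4 and 37.8 CPM in the AKT/NRas livers, against 0, 0.568, 0.401 and 1.28 CPM in the SB livers (log2 fold change 4.73 ± 0.90, edgeR adjusted p = 0.00177, and 5.10 ± 0.73 without AKT/NRas liver 1). Psat1, an enzyme of serine synthesis (ENSMUSG00000024640, chromosome 19, 15904678 to 15947337), had 0.440, 6.26, 38.9 and 6.83 CPM in the AKT/NRas livers, against 0.856, 0.568, 1.604 and 0 CPM in the SB livers (log2 fold change 4.04 ± 0.93, edgeR adjusted p = 0.0071, and 4.40 ± 0.80 without AKT/NRas liver 1). Shmt2, the mitochondrial serine hydroxymethyltransferase (ENSMUSG00000025403, chromosome 10, 127517123 to 127522444), had 50.6, 47.3, 46.3 and 45.2 CPM in the AKT/NRas livers, against 91.2, 80.2, 83.4 and 61.6 CPM in the SB livers (log2 fold change −0.74 ± 0.17, edgeR adjusted p = 0.00665, and −0.78 ± 0.18 without AKT/NRas liver 1) and was the member that fell. Atf4 itself did not pass (log2 fold change −0.04 ± 0.21, edgeR adjusted p = 0.943). For Psat1 the edgeR adjusted p was 0.115 without AKT/NRas liver 3.

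Some genes of pyrimidine breakdown fell, and glucose genes were divided. Of 9 genes of pyrimidine breakdown 4 fell and 1 rose, and over the 20 genes of purine and pyrimidine breakdown 4 fell with library size alone. Over these 20 the number that fell was 10 without AKT/NRas liver 1, 3 without SB liver 1 and 4 to 5 without any other liver. Over these 20 the number that rose was 3 without AKT/NRas liver 1, 0 without AKT/NRas liver 2, 3 or 4 or SB liver 1, 2 or 3 and 1 without SB liver 4. Upb1, the last enzyme of uracil breakdown (ENSMUSG00000033427, chromosome 10, 75401115 to 75441679), had 215, 106, 97.7 and 112 CPM in the AKT/NRas livers, against 330.4, 284, 262 and 291 CPM in the SB livers (log2 fold change −1.14 ± 0.22, edgeR adjusted p = 0.00192, and −1.48 ± 0.20 without AKT/NRas liver 1). Dpyd, its first (ENSMUSG00000033308, chromosome 3, 118562129 to 119432924), had 159, 94.3, 47.2 and 119 CPM in the AKT/NRas livers, against 253, 247, 227 and 236 CPM in the SB livers (log2 fold change −1.21 ± 0.27, edgeR adjusted p = 0.00553, and −1.49 ± 0.27 without AKT/NRas liver 1). Of 37 glucose genes 4 rose and 5 fell, where library size alone gave 9 and 0. The number of glucose genes that rose was 5 without AKT/NRas liver 1, 2 without AKT/NRas liver 3 and 4 without any other liver. The number of glucose genes that fell was 8 without AKT/NRas liver 1, 3 without AKT/NRas liver 2 or SB liver 1 or 4, 1 without AKT/NRas liver 3, 2 without AKT/NRas liver 4 and 4 without any other liver. Hk2, the hexokinase of growing cells (ENSMUSG00000000628, chromosome 6, 82725025 to 82774454), had 3.96, 14.96, 17.9 and 23.1 CPM in the AKT/NRas livers, against 0.428, 1.71, 1.20 and 2.57 CPM in the SB livers (log2 fold change 3.35 ± 0.79, edgeR adjusted p = 0.00861, and 3.63 ± 0.76 without AKT/NRas liver 1). Pck2, the mitochondrial PEP carboxykinase (ENSMUSG00000040618, chromosome 14, 55540266 to 55551242), had 4.84, 9.74, 15.9 and 8.79 CPM in the AKT/NRas livers, against 2.14, 3.98, 3.61 and 1.71 CPM in the SB livers (log2 fold change 1.81 ± 0.37, edgeR adjusted p = 0.0031, and 2.01 ± 0.36 without AKT/NRas liver 1).

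Markers of hepatocyte identity fell in part. Of 19 tested markers 0 rose and 9 fell (14 without AKT/NRas liver 1, 5 without AKT/NRas liver 2 or 3, 4 without SB liver 1 and 6 to 8 without any other liver), with 6 under library size alone. Their summed level was 104092, 64502, 84131 and 61494 CPM in the AKT/NRas livers, against 119229, 115324, 114504 and 135747 CPM in the SB livers. Over the same livers the summed level of 25 macrophage markers was 437, 3316, 10014 and 1503 CPM in the AKT/NRas livers, against 204, 194, 316 and 268 CPM in the SB livers. That list holds Spp1, which ducts also make, and without it the sum was 339, 828, 1432 and 629 CPM in the AKT/NRas livers, against 158, 150.1, 266 and 228 CPM in the SB livers. The part of other cell types in the hepatocyte values was not tested. Alb, or albumin (ENSMUSG00000029368, chromosome 5, 90460897 to 90476602), had 31066, 19806, 31885 and 22779 CPM in the AKT/NRas livers, against 45352, 41927, 42309 and 52191 CPM in the SB livers (log2 fold change −0.78 ± 0.23, edgeR adjusted p = 0.0323, and −0.89 ± 0.23 without AKT/NRas liver 1). For albumin liver 3 was the highest of its group, unlike for most enzymes. Hnf4a, the master regulator of hepatocytes, did not pass (log2 fold change −0.47 ± 0.22, edgeR adjusted p = 0.204). Of 33 liver-enriched transcription factors 0 rose and 7 fell (13 without AKT/NRas liver 1, 3 without AKT/NRas liver 2 or 4 or SB liver 1, 2 without AKT/NRas liver 3, 4 without SB liver 2 or 4 and 6 without any other liver), with 2 under library size alone. Esr1, the estrogen receptor (ENSMUSG00000019768, chromosome 10, 4611593 to 5005614), had 15.4, 13.2, 10.5 and 12.7 CPM in the AKT/NRas livers, against 17.1, 35.2, 27.7 and 32.1 CPM in the SB livers (log2 fold change −1.12 ± 0.25, edgeR adjusted p = 0.00665, and −1.21 ± 0.27 without AKT/NRas liver 1). For Alb the edgeR adjusted p was 0.117 without AKT/NRas liver 2, 0.0861 without AKT/NRas liver 4, 0.0699 without SB liver 1, 0.0515 without SB liver 2 and 0.099 without SB liver 4.

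Zonation, bile acid and growth hormone genes fell in part. Of 16 periportal genes 6 fell and 2 rose, and of 21 perivenous genes 4 fell and 0 rose, where library size alone gave 10 that fell and 5 that rose in both. The periportal genes that fell were 10 without AKT/NRas liver 1 and 6 without AKT/NRas liver 3, and the perivenous ones 8 without AKT/NRas liver 1 and 0 without AKT/NRas liver 3. Over both zones the number that fell was 18 without AKT/NRas liver 1, 6 without AKT/NRas liver 3, 5 without AKT/NRas liver 4 or SB liver 1 and 7 to 10 without any other liver, and the number that rose was 3 without AKT/NRas liver 1, 0 without AKT/NRas liver 3 or SB liver 1, 1 without AKT/NRas liver 4 or SB liver 3 or 4 and 2 without any other liver. Glul (log2 fold change −0.20 ± 0.28, edgeR adjusted p = 0.73) and Axin2 (log2 fold change 0.41 ± 0.38, edgeR adjusted p = 0.573), targets of beta-catenin around the central vein, did not pass. Cyp7a1, the rate-limiting enzyme of bile acid synthesis (ENSMUSG00000028240, chromosome 4, 6265612 to 6275633), had 47.05, 43.8, 10.8 and 24.1 CPM in the AKT/NRas livers, against 209.7, 102, 73.8 and 104 CPM in the SB livers (log2 fold change −1.98 ± 0.41, edgeR adjusted p = 0.00332, and −2.25 ± 0.45 without AKT/NRas liver 1). Akr1d1, a later enzyme of that pathway (ENSMUSG00000038641, chromosome 6, 37530173 to 37568815), had 77.8, 25.4, 23.6 and 33.8 CPM in the AKT/NRas livers, against 128, 101, 94.2 and 108 CPM in the SB livers (log2 fold change −1.44 ± 0.28, edgeR adjusted p = 0.00203, and −1.98 ± 0.24 without AKT/NRas liver 1). Of 10 bile acid synthesis genes 5 fell, and of 11 transporters 2 rose, where library size alone gave 4 that fell and 4 that rose over the whole list. Of the synthesis genes 8 without AKT/NRas liver 1 and 2 without AKT/NRas liver 3 fell. The number over the whole bile acid list that fell was 13 without AKT/NRas liver 1, 2 without AKT/NRas liver 2 or 3, 3 without AKT/NRas liver 4 or SB liver 2 or 4 and 4 without any other liver, and the number that rose was 2 without AKT/NRas liver 1, 1 without AKT/NRas liver 2 or 4 or SB liver 1, 2 or 4 and 0 without AKT/NRas liver 3 or SB liver 3. Among 23 male-biased genes of the growth hormone program 2 fell with all livers (19 without AKT/NRas liver 1 and 0 without AKT/NRas liver 3), and over the whole program, female-biased genes included, library size alone gave 4 that fell and 7 that rose. Over that program the number that fell was 23 without AKT/NRas liver 1, 0 without AKT/NRas liver 2, 3 or 4, 1 without SB liver 1 or 4 and 4 without any other liver, and the number that rose was 6 without AKT/NRas liver 1, 1 without AKT/NRas liver 3 and 3 to 4 without any other liver.

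Plasma proteins fell in part. Of 58 coagulation, complement and carrier genes 14 fell (31 without AKT/NRas liver 1, 3 without AKT/NRas liver 2 or SB liver 2, 1 without AKT/NRas liver 3, 2 without AKT/NRas liver 4, 4 without SB liver 1 or 4 and 7 without SB liver 3) and 1 rose, where library size alone gave 3 and 3. The number of these that rose was 1 without any 1 of the 8 livers. Of 32 acute phase genes 7 rose and 3 fell (2 with library size alone). The number of acute phase genes that rose was 7 without AKT/NRas liver 1 and 6 to 7 without any other liver. The number of acute phase genes that fell was 5 without AKT/NRas liver 1, 0 without AKT/NRas liver 2 or 3, 1 without AKT/NRas liver 4 or SB liver 1 or 4 and 2 without any other liver. Lcn2, an iron-binding protein of inflammation (ENSMUSG00000026822, chromosome 2, 32384633 to 32388252), had 33.9, 939.5, 5689 and 2642 CPM in the AKT/NRas livers, against 26.1, 16.5, 66.2 and 63.4 CPM in the SB livers (log2 fold change 5.74 ± 0.99, edgeR adjusted p = 0.000838, and 6.14 ± 0.80 without AKT/NRas liver 1). Mt2, a metallothionein (ENSMUSG00000031762, chromosome 8, 94172664 to 94173568), had 7.47, 72.4, 328 and 167 CPM in the AKT/NRas livers, against 15.4, 3.98, 5.21 and 8.13 CPM in the SB livers (log2 fold change 4.11 ± 0.76, edgeR adjusted p = 0.00133, and 4.49 ± 0.62 without AKT/NRas liver 1). Both were within the SB range in liver 1 and highest in liver 3. Saa1 (log2 fold change −1.79 ± 0.59, edgeR adjusted p = 0.0579) and Crp (log2 fold change −0.43 ± 0.23, edgeR adjusted p = 0.288), classical acute phase genes, did not pass. Of 18 genes of iron handling 3 rose and 2 fell, where library size alone gave 8 and 1. The number of iron genes that rose was 4 without AKT/NRas liver 1, 1 without AKT/NRas liver 3 and 2 to 3 without any other liver. The number of iron genes that fell was 4 without AKT/NRas liver 1, 0 without AKT/NRas liver 2, 3 or 4 or SB liver 2 or 4 and 1 without SB liver 1 or 3. Tfrc, the transferrin receptor (ENSMUSG00000022797, chromosome 16, 32608920 to 32632794), had 14.1, 24.4, 37.8 and 29.3 CPM in the AKT/NRas livers, against 10.7, 9.10, 12.03 and 8.56 CPM in the SB livers (log2 fold change 1.39 ± 0.26, edgeR adjusted p = 0.00149, and 1.57 ± 0.23 without AKT/NRas liver 1). Hamp, or hepcidin (ENSMUSG00000050440, chromosome 7, 30942368 to 30944032), had 1421, 898, 79.0 and 693 CPM in the AKT/NRas livers, against 2085, 2695, 2118 and 3846 CPM in the SB livers (log2 fold change −1.80 ± 0.51, edgeR adjusted p = 0.0257, and −2.29 ± 0.54 without AKT/NRas liver 1). For Hamp the edgeR adjusted p was 0.0528 without AKT/NRas liver 2, 0.0538 without AKT/NRas liver 3, 0.0696 without AKT/NRas liver 4, 0.0525 without SB liver 2 and 0.0882 without SB liver 4.

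The count for the respiratory chain depended strongly on AKT/NRas livers 1 and 3. Of 46 respiratory chain genes 10 fell and 0 rose (40 without AKT/NRas liver 1, 3 without AKT/NRas liver 2 or SB liver 1, 0 without AKT/NRas liver 3, 5 without AKT/NRas liver 4 or SB liver 3, 6 without SB liver 2 and 1 without SB liver 4), and 0 fell with library size alone, at a median of −0.47. mt-Co1, a subunit of complex IV from the mitochondrial genome (ENSMUSG00000064351, chromosome MT, 5328 to 6872), had 667, 421, 244.6 and 663 CPM in the AKT/NRas livers, against 967, 1014, 1064 and 1169 CPM in the SB livers (log2 fold change −1.08 ± 0.27, edgeR adjusted p = 0.0124, and −1.26 ± 0.29 without AKT/NRas liver 1). Of 46 cytosolic ribosomal protein genes 0 rose and 0 fell by edgeR, where DESeq2 gave 1 that rose, limma-voom 0 and library size alone 12 that rose. At an unadjusted p under 0.05, 3 ribosomal genes were higher and 0 lower. Their median was 0.04. Of 18 clock genes 3 fell (1 with library size alone). The number of clock genes that fell was 4 without AKT/NRas liver 1, 1 without AKT/NRas liver 2, 3 or 4 and 2 to 4 without any other liver. The labels used here give no time of day for the livers. For mt-Co1 the edgeR adjusted p was 0.062 without AKT/NRas liver 3.

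Matrix genes and markers of activated stellate cells rose in part, with liver 1 near the SB livers. Of 63 tested matrix genes 28 rose and 0 fell (34 without AKT/NRas liver 1, 15 without AKT/NRas liver 3 and 19 to 25 without any other liver), at a median of 1.84. Col1a1, a chain of collagen I (ENSMUSG00000001506, chromosome 11, 94936224 to 94953042), had 3.52, 70.6, 141 and 33.8 CPM in the AKT/NRas livers, against 5.56, 5.68, 6.42 and 3.85 CPM in the SB livers (log2 fold change 3.54 ± 0.70, edgeR adjusted p = 0.00235, and 3.90 ± 0.57 without AKT/NRas liver 1). Col4a1, of basement membranes (ENSMUSG00000031502, chromosome 8, 11198423 to 11312826), had 18.9, 84.6, 119 and 87.5 CPM in the AKT/NRas livers, against 18.0, 25.6, 12.8 and 14.98 CPM in the SB livers (log2 fold change 2.14 ± 0.41, edgeR adjusted p = 0.00187, and 2.45 ± 0.34 without AKT/NRas liver 1). Loxl2, which crosslinks collagen (ENSMUSG00000034205, chromosome 14, 69609068 to 69695834), had 1.76, 18.8, 25.3 and 37.8 CPM in the AKT/NRas livers, against 2.57, 1.71, 0 and 1.28 CPM in the SB livers (log2 fold change 3.93 ± 0.67, edgeR adjusted p = 0.000788, and 4.28 ± 0.52 without AKT/NRas liver 1). For all of them livers 2 to 4 lay above the SB livers and liver 1 within or below their range. Sparc, which binds collagen (ENSMUSG00000018593, chromosome 11, 55394500 to 55423183), had 55.4, 199, 229 and 112 CPM in the AKT/NRas livers, against 40.2, 35.8, 52.5 and 36.8 CPM in the SB livers (log2 fold change 1.85 ± 0.36, edgeR adjusted p = 0.00202, and 2.10 ± 0.32 without AKT/NRas liver 1). Of 13 markers of activated stellate cells 8 rose, and of 11 markers of resting ones 1 rose and 1 fell. The activated markers that rose were 9 without AKT/NRas liver 1 and 3 without AKT/NRas liver 3. Over all 24 stellate markers the number that rose was 11 without AKT/NRas liver 1, 5 without AKT/NRas liver 2 or SB liver 3, 3 without AKT/NRas liver 3 or SB liver 2, 4 without SB liver 4 and 6 to 8 without any other liver, and the number that fell was 2 without AKT/NRas liver 1, 0 without AKT/NRas liver 2, 3 or 4 or SB liver 3 or 4 and 1 without any other liver, with 0 under library size alone. Timp1, the inhibitor of matrix proteases (ENSMUSG00000001131, chromosome X, 20870166 to 20874735), had 0.879, 14.96, 60.8 and 13.99 CPM in the AKT/NRas livers, against 1.71, 0, 0 and 0.428 CPM in the SB livers (log2 fold change 5.27 ± 1.04, edgeR adjusted p = 0.00228, and 5.64 ± 0.89 without AKT/NRas liver 1). Acta2, or smooth muscle actin (ENSMUSG00000035783, chromosome 19, 34241090 to 34255336), had 0.440, 18.4, 32.1 and 10.1 CPM in the AKT/NRas livers, against 7.28, 2.27, 1.604 and 0.856 CPM in the SB livers (log2 fold change 2.36 ± 0.73, edgeR adjusted p = 0.0411, and 2.72 ± 0.61 without AKT/NRas liver 1). For Acta2 the edgeR adjusted p was 0.0854 without AKT/NRas liver 2, 0.242 without AKT/NRas liver 3, 0.0502 without AKT/NRas liver 4, 0.0973 without SB liver 2, 0.116 without SB liver 3 and 0.132 without SB liver 4.

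Markers of monocyte-derived macrophages rose in part. Of 25 markers of monocyte-derived and scar-associated macrophages 16 rose and 0 fell (17 without AKT/NRas liver 1, 9 without AKT/NRas liver 3 and 11 to 16 without any other liver). Cd63, a tetraspanin of lysosomes (ENSMUSG00000025351, chromosome 10, 128900989 to 128912822), had 25.5, 154, 423 and 126 CPM in the AKT/NRas livers, against 9.42, 10.2, 20.5 and 20.6 CPM in the SB livers (log2 fold change 3.57 ± 0.53, edgeR adjusted p = 0.000232, and 3.92 ± 0.42 without AKT/NRas liver 1). Lgals3, or galectin-3 (ENSMUSG00000050335, chromosome 14, 47367751 to 47386160), had 19.3, 88.4, 128 and 58.6 CPM in the AKT/NRas livers, against 6.42, 5.12, 9.22 and 10.7 CPM in the SB livers (log2 fold change 3.21 ± 0.56, edgeR adjusted p = 0.000941, and 3.502 ± 0.52 without AKT/NRas liver 1). Cd68, a lysosomal protein of macrophages (ENSMUSG00000018774, chromosome 11, 69664213 to 69666153), had 16.7, 25.1, 25.6 and 15.9 CPM in the AKT/NRas livers, against 2.57, 6.82, 7.62 and 6.85 CPM in the SB livers (log2 fold change 1.81 ± 0.37, edgeR adjusted p = 0.00291, and 1.88 ± 0.38 without AKT/NRas liver 1). Cd68 was higher than in SB livers already in liver 1, and livers 1 and 4 were alike. Mmp12, the elastase of macrophages (ENSMUSG00000049723, chromosome 9, 7344381 to 7369499), had 0.879, 13.2, 17.0 and 11.7 CPM in the AKT/NRas livers, against 0.428, 0.568, 0.401 and 0.428 CPM in the SB livers (log2 fold change 4.49 ± 0.87, edgeR adjusted p = 0.00194, and 4.83 ± 0.74 without AKT/NRas liver 1). Trem2, a receptor of scar-associated macrophages, did not pass with all livers (log2 fold change 1.98 ± 0.77, edgeR adjusted p = 0.114). Of 19 Kupffer cell genes 3 rose, C1qb, C1qc and Adgre1, and the defining genes Clec4f (log2 fold change 0.22 ± 0.29, edgeR adjusted p = 0.714) and Timd4 (log2 fold change 0.58 ± 0.40, edgeR adjusted p = 0.415) did not pass. The number of Kupffer genes that rose was 3 without AKT/NRas liver 1, 0 without AKT/NRas liver 2 or 3 or SB liver 1 or 2 and 2 to 4 without any other liver. The summed level of the Kupffer list was 835, 858, 533 and 692 CPM in the AKT/NRas livers, against 455, 540.0, 747 and 819 CPM in the SB livers.

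Some neutrophil genes and chemokines rose. Cxcl3, a neutrophil chemokine (ENSMUSG00000029379, chromosome 5, 90786103 to 90789600), had 0.879, 3.83, 9.66 and 34.8 CPM in the AKT/NRas livers, against 0, 0, 0 and 0 CPM in the SB livers (at least 39.02-fold higher, edgeR adjusted p = 0.0016, and 6.34e-05 without AKT/NRas liver 1). S100a8, a granule protein of neutrophils and monocytes (ENSMUSG00000056054, chromosome 3, 90668978 to 90670035), had 6.60, 8.003, 31.8 and 33.8 CPM in the AKT/NRas livers, against 0.856, 1.14, 4.81 and 5.57 CPM in the SB livers (log2 fold change 2.65 ± 0.56, edgeR adjusted p = 0.00364, and 2.92 ± 0.53 without AKT/NRas liver 1). Liver 4 was highest for both, ahead of liver 3. Of 19 neutrophil genes and chemokines 7 rose and 0 fell (11 without AKT/NRas liver 1, 4 without AKT/NRas liver 3 or 4 and 5 to 7 without any other liver), and Ly6g, the defining surface marker, did not pass (count ratio 0.760, 95% interval 0.00968 to 59.7, edgeR adjusted p = 0.952). Of 21 T and NK cell genes 0 rose and 0 fell by edgeR, with 4 higher at an unadjusted p under 0.05, and Cd3e, part of the T cell receptor, did not pass (count ratio 1.90, 95% interval 0.311 to 19.9, edgeR adjusted p = 0.764). Of 14 B and plasma cell genes 0 rose and 0 fell by edgeR, DESeq2 and limma-voom, with 1 lower at an unadjusted p under 0.05, and library size alone gave 1 that rose. Of 13 chemokines and receptors in the list of T and NK cells 7 rose, among them Ccl2 and Cxcl10. The number over that whole list was 7 without AKT/NRas liver 1, 0 without AKT/NRas liver 3, 2 without SB liver 1 or 4, 4 without SB liver 2 and 5 to 7 without any other liver. Of 27 genes of antigen presentation 7 rose and 0 fell, 6 of them among the 8 class II genes. The number of antigen presentation genes that rose was 9 without AKT/NRas liver 1, 4 without AKT/NRas liver 2 or SB liver 1 or 4, 3 without AKT/NRas liver 3 and 5 to 6 without any other liver. H2-Eb1, a chain of MHC class II (ENSMUSG00000060586, chromosome 17, 34305877 to 34316199), had 19.3, 44.9, 99.4 and 35.8 CPM in the AKT/NRas livers, against 13.3, 11.4, 12.8 and 16.7 CPM in the SB livers (log2 fold change 1.89 ± 0.35, edgeR adjusted p = 0.00149, and 2.13 ± 0.31 without AKT/NRas liver 1). Cd74, its invariant chain (ENSMUSG00000024610, chromosome 18, 60803848 to 60812646), had 35.2, 79.3, 107 and 49.1 CPM in the AKT/NRas livers, against 17.1, 20.5, 25.7 and 21.0 CPM in the SB livers (log2 fold change 1.69 ± 0.34, edgeR adjusted p = 0.00288, and 1.88 ± 0.33 without AKT/NRas liver 1).

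For many interferon-stimulated genes liver 1 stood with livers 2 to 4. Of 37 tested members 17 rose and 0 fell (18 without AKT/NRas liver 1, 11 without AKT/NRas liver 3 or SB liver 1 and 12 to 16 without any other liver). Their summed level was 1152, 1168, 1215 and 1312 CPM in the AKT/NRas livers, against 655, 661, 870.1 and 861 CPM in the SB livers, and every AKT/NRas liver was above every SB liver. Isg15, a ubiquitin-like protein (ENSMUSG00000035692, chromosome 4, 156199424 to 156200818), had 27.3, 25.1, 30.4 and 33.8 CPM in the AKT/NRas livers, against 6.42, 6.25, 11.6 and 11.6 CPM in the SB livers (log2 fold change 1.68 ± 0.24, edgeR adjusted p = 0.000188, and 1.70 ± 0.25 without AKT/NRas liver 1). Usp18, which removes Isg15 (ENSMUSG00000030107, chromosome 6, 121245906 to 121270917), had 12.3, 16.01, 15.1 and 14.3 CPM in the AKT/NRas livers, against 5.14, 2.84, 5.21 and 4.71 CPM in the SB livers (log2 fold change 1.66 ± 0.34, edgeR adjusted p = 0.00316, and 1.71 ± 0.36 without AKT/NRas liver 1). In both the 4 AKT/NRas livers were close to each other. Ifi27l2b, a mitochondrial protein of the Ifi27 family (ENSMUSG00000021208, chromosome 12, 103450898 to 103457223), had 43.97, 173, 229 and 146 CPM in the AKT/NRas livers, against 14.6, 11.9, 23.3 and 18.8 CPM in the SB livers (log2 fold change 3.10 ± 0.41, edgeR adjusted p = 7.74e-05, and 3.38 ± 0.35 without AKT/NRas liver 1). Irf7, a factor that amplifies the response (ENSMUSG00000025498, chromosome 7, 141262706 to 141266481), had 51.9, 38.97, 26.4 and 65.7 CPM in the AKT/NRas livers, against 17.1, 16.5, 32.1 and 20.1 CPM in the SB livers (log2 fold change 1.08 ± 0.25, edgeR adjusted p = 0.00822, and 1.0000 ± 0.27 without AKT/NRas liver 1), and liver 3 lay within the SB range.

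The promoters of this group are shown for the interferon-stimulated response element, written here as GAAA, any 2 bases and GAAA. A window was matched to 27 of the 37 members, and 17 of them (63%) held the motif on either strand, against 3.35% of all mouse promoters. Of the 12 members that rose and had a window, 6 held it. The windows of Isg15 (chr4:156200789-156201068, minus strand) and of Cxcl10 (chr5:92348860-92349139, minus strand), a chemokine of the same response, are given 5′ to 3′ with the motif in capitals. In Isg15, 3 matches overlap in 1 run. The AP-1 site TGANTCA was in 6 of 26 windows of RAS-MAPK feedback and ETS targets (23.1%), against 7.57% of all promoters. Of the 8 members that rose and had a window, 1 held it. It was in 25.9% of interferon, 20.4% of conjugation and 0% of mitosis windows. The antioxidant element TGANNNNGC was in 29 of 54 windows of conjugation and NRF2 genes (53.7%), against 39.1%. Of the 18 members that rose and had a window, 10 held it. It was in 55.6% of interferon, 47.5% of mitosis and 38.5% of RAS-MAPK windows. Neither motif was therefore particular to its list.
Isg15: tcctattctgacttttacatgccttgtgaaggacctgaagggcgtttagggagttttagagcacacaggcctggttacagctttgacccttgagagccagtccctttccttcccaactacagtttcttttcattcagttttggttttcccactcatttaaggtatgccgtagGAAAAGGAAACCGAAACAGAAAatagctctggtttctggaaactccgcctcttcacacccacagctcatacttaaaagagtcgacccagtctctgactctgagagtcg
Cxcl10: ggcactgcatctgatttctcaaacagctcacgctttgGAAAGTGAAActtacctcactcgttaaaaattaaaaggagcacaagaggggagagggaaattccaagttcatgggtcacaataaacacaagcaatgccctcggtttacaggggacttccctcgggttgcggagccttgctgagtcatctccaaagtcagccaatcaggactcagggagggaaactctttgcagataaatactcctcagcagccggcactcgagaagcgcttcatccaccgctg

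Cytokine receptors and adhesion molecules of the NF-kB list rose in part. Of 37 tested members 9 rose and 0 fell (12 without AKT/NRas liver 1, 4 without AKT/NRas liver 3, 5 without SB liver 1 or 2 and 6 to 9 without any other liver). Tnfrsf12a, the receptor of TWEAK (ENSMUSG00000023905, chromosome 17, 23675447 to 23677449), had 26.4, 112, 264 and 113 CPM in the AKT/NRas livers, against 8.99, 7.96, 12.8 and 18.0 CPM in the SB livers (log2 fold change 3.42 ± 0.56, edgeR adjusted p = 0.000561, and 3.74 ± 0.49 without AKT/NRas liver 1). Il33, an alarmin (ENSMUSG00000024810, chromosome 19, 29925114 to 29960718), had 2.20, 10.4, 23.3 and 21.2 CPM in the AKT/NRas livers, against 2.14, 1.14, 0.401 and 0.856 CPM in the SB livers (log2 fold change 3.65 ± 0.61, edgeR adjusted p = 0.000751, and 3.97 ± 0.51 without AKT/NRas liver 1). Itga2, an integrin that binds collagen (ENSMUSG00000015533, chromosome 13, 114833081 to 114932100), had 0.440, 1.39, 8.81 and 8.79 CPM in the AKT/NRas livers, against 0, 0, 0 and 0 CPM in the SB livers (at least 15.96-fold higher, edgeR adjusted p = 0.00226, and 0.000141 without AKT/NRas liver 1). Nfkbia, the inhibitor that NF-kB itself induces, did not pass (log2 fold change −0.10 ± 0.18, edgeR adjusted p = 0.803). Of 23 genes of sinusoidal endothelium 2 rose and 0 fell. The number of sinusoidal genes that rose was 5 without AKT/NRas liver 1, 1 without AKT/NRas liver 2 or 4 or SB liver 1, 2 or 4 and 2 without any other liver, and the number that fell was 3 without AKT/NRas liver 1 and 0 without any other liver. Flt4, the receptor of VEGF-C (ENSMUSG00000020357, chromosome 11, 49609263 to 49652739), had 13.6, 22.3, 36.1 and 37.4 CPM in the AKT/NRas livers, against 9.84, 9.10, 8.42 and 8.99 CPM in the SB livers (log2 fold change 1.601 ± 0.32, edgeR adjusted p = 0.00275, and 1.80 ± 0.31 without AKT/NRas liver 1). Stab2 (log2 fold change −0.01 ± 0.23, edgeR adjusted p = 0.991) and Lyve1 (log2 fold change 1.47 ± 0.52, edgeR adjusted p = 0.0806), defining endothelial genes, did not pass. Of 20 skeletal muscle genes 0 rose and 0 fell by edgeR, DESeq2 and limma-voom and at an unadjusted edgeR p under 0.05, and their summed level was 28.6, 29.6, 15.1 and 26.04 CPM in the AKT/NRas livers, against 31.2, 49.5, 28.1 and 56.1 CPM in the SB livers.

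**Figure D4:**
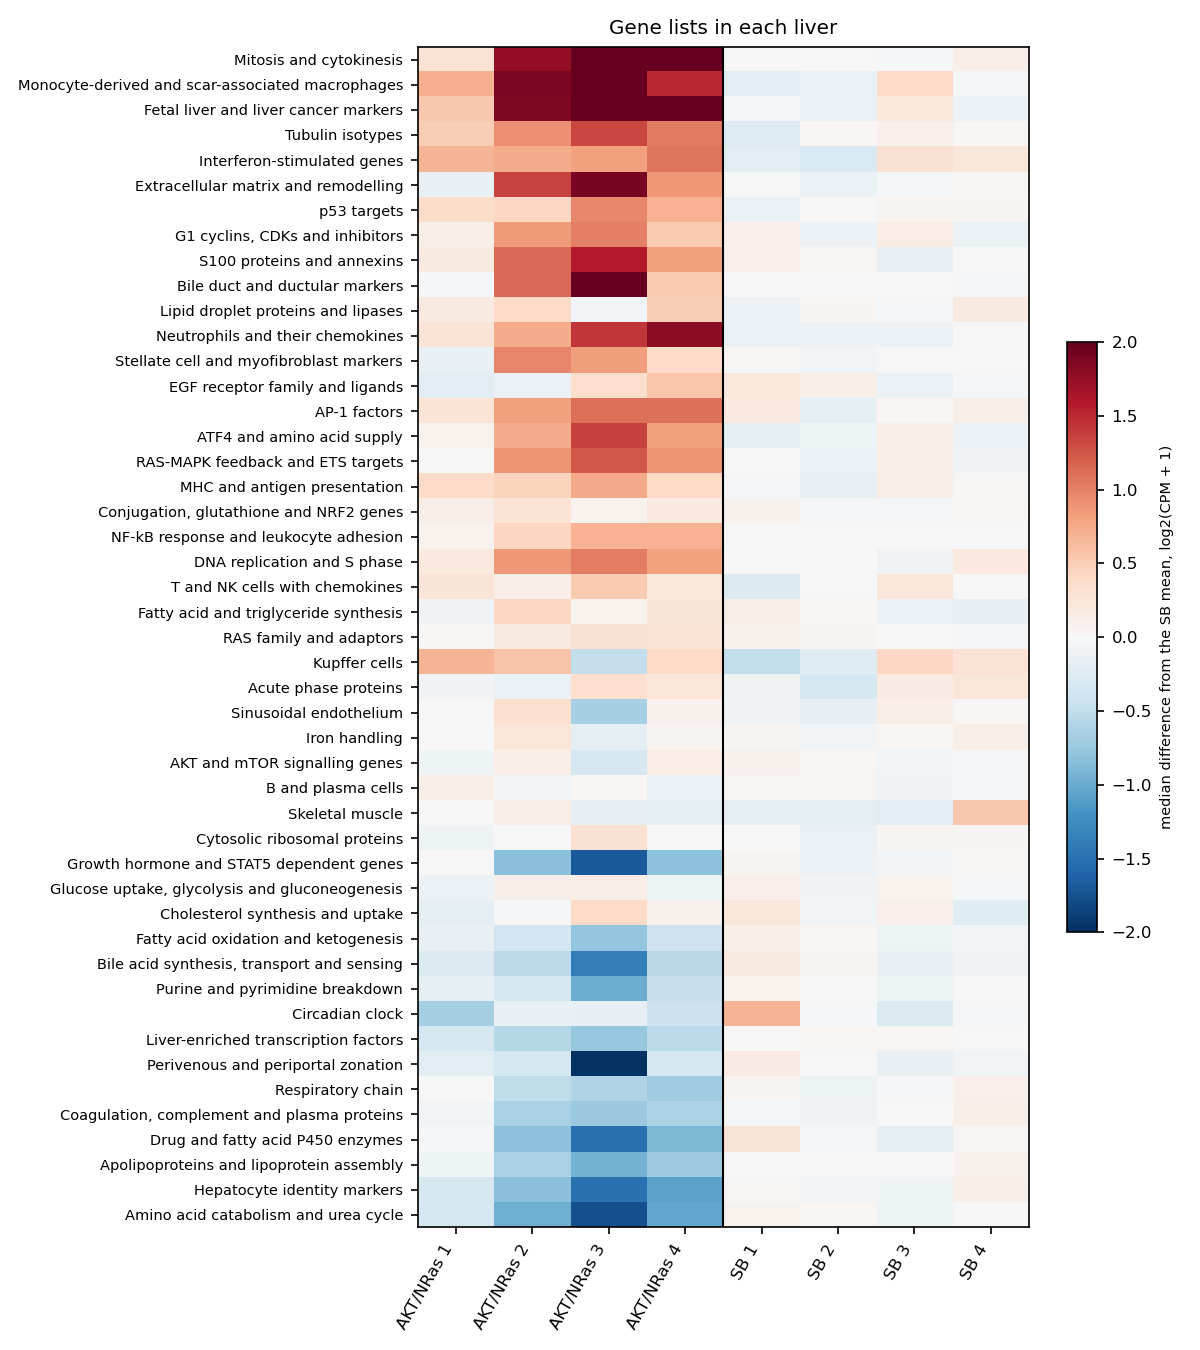
Median difference from the SB + saline mean in log2(CPM + 1) over the members of each gene list. Columns are SB/AKT/NRas + saline livers left of the line and SB + saline livers right of it. The colour scale stops at 2 and −2. AKT/NRas liver 1 is pale in most lists. It differs most in monocyte-derived macrophages (0.708), interferon-stimulated genes (0.687), Kupffer cells (0.678) and the circadian clock (−0.671). SB livers spanned −0.49 to 0.414 for Kupffer cells and −0.294 to 0.674 for the clock. AKT/NRas liver 3 has the strongest colours.

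In the AKT/c-Met livers, which had 10 µg of a plasmid for the receptor c-Met in place of NRas and shared the saline schedule, few genes were different from the AKT/NRas livers at this number of mice. Of 19381 genes 26 were called (0.134%), 24 higher in the AKT/NRas livers (0.124%) and 2 lower (0.0103%), with 1832 (9.45%) at an unadjusted p under 0.05. The count rested on single livers. It was 284 without AKT/NRas liver 1, 19 without liver 2, 2 without liver 3 and 8 without liver 4, and 1, 0 and 1 without AKT/c-Met livers 1, 2 and 3. By limma-voom it was 1 and by DESeq2 62. Human MET, the transcript of the c-Met plasmid, had 0 counts in each AKT/NRas liver, against 12, 15 and 10 counts in the AKT/c-Met livers.

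Gpc3 had 3.96, 35.5, 193 and 137 CPM in the AKT/NRas livers, against 2.78, 1.71 and 2.62 CPM in the AKT/c-Met livers (log2 fold change 5.29 ± 0.80, edgeR adjusted p = 0.0032). Afp had 3.96, 112, 422 and 139.6 CPM in the AKT/NRas livers, against 2.78, 10.6 and 5.25 CPM in the AKT/c-Met livers (log2 fold change 4.72 ± 0.85, edgeR adjusted p = 0.0221). Cdh17, a cadherin of the intestine (ENSMUSG00000028217, chromosome 4, 11758147 to 11817895), had 1.76, 20.9, 89.8 and 28.3 CPM in the AKT/NRas livers, against 0, 1.03 and 0 CPM in the AKT/c-Met livers (count ratio 103, 95% interval 34.95 to 500.2, edgeR adjusted p = 0.0153). Livers 2 to 4 lay above the AKT/c-Met livers in all 3 genes, and liver 1 lay among them for Afp and just above them for Gpc3 and Cdh17. Meg3, an imprinted RNA (ENSMUSG00000021268, chromosome 12, 109541001 to 109571726), had 0.879, 29.6, 82.4 and 58.6 CPM in the AKT/NRas livers, against 1.39, 0.342 and 1.50 CPM in the AKT/c-Met livers (log2 fold change 5.33 ± 0.94, edgeR adjusted p = 0.0221). Crybb3, a crystallin of the lens (ENSMUSG00000029352, chromosome 5, 113075839 to 113081584), had 1.76, 7.66, 28.4 and 9.76 CPM in the AKT/NRas livers, against 0.463, 0.342 and 0 CPM in the AKT/c-Met livers (count ratio 51.5, 95% interval 14.02 to 429, edgeR adjusted p = 0.0221). BC049987 (ENSMUSG00000110755, chromosome 9, 44670453 to 44672238), the mouse gene that was lower, had 15.8, 10.8, 9.09 and 11.7 CPM in the AKT/NRas livers, against 22.7, 24.6 and 35.2 CPM in the AKT/c-Met livers (log2 fold change −1.23 ± 0.23, edgeR adjusted p = 0.0249). Of genes named above, Slc7a11 had 0.440, 11.1, 13.4 and 37.8 CPM in the AKT/NRas livers, against 0.926, 0.342 and 0 CPM in the AKT/c-Met livers (count ratio 43.1, 95% interval 14.5 to 211, edgeR adjusted p = 0.0438), and Cdkn2b had 3.08, 10.8, 41.8 and 9.44 CPM in the AKT/NRas livers, against 0.926, 1.71 and 0.750 CPM in the AKT/c-Met livers (log2 fold change 3.80 ± 0.75, edgeR adjusted p = 0.0438). Cidea did not differ past the threshold between these groups, with 198, 239.8, 58.8 and 172 CPM in the AKT/NRas livers, against 283, 616 and 547 CPM in the AKT/c-Met livers (log2 fold change −1.53 ± 0.42, edgeR adjusted p = 0.187).

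**Figure D5:**
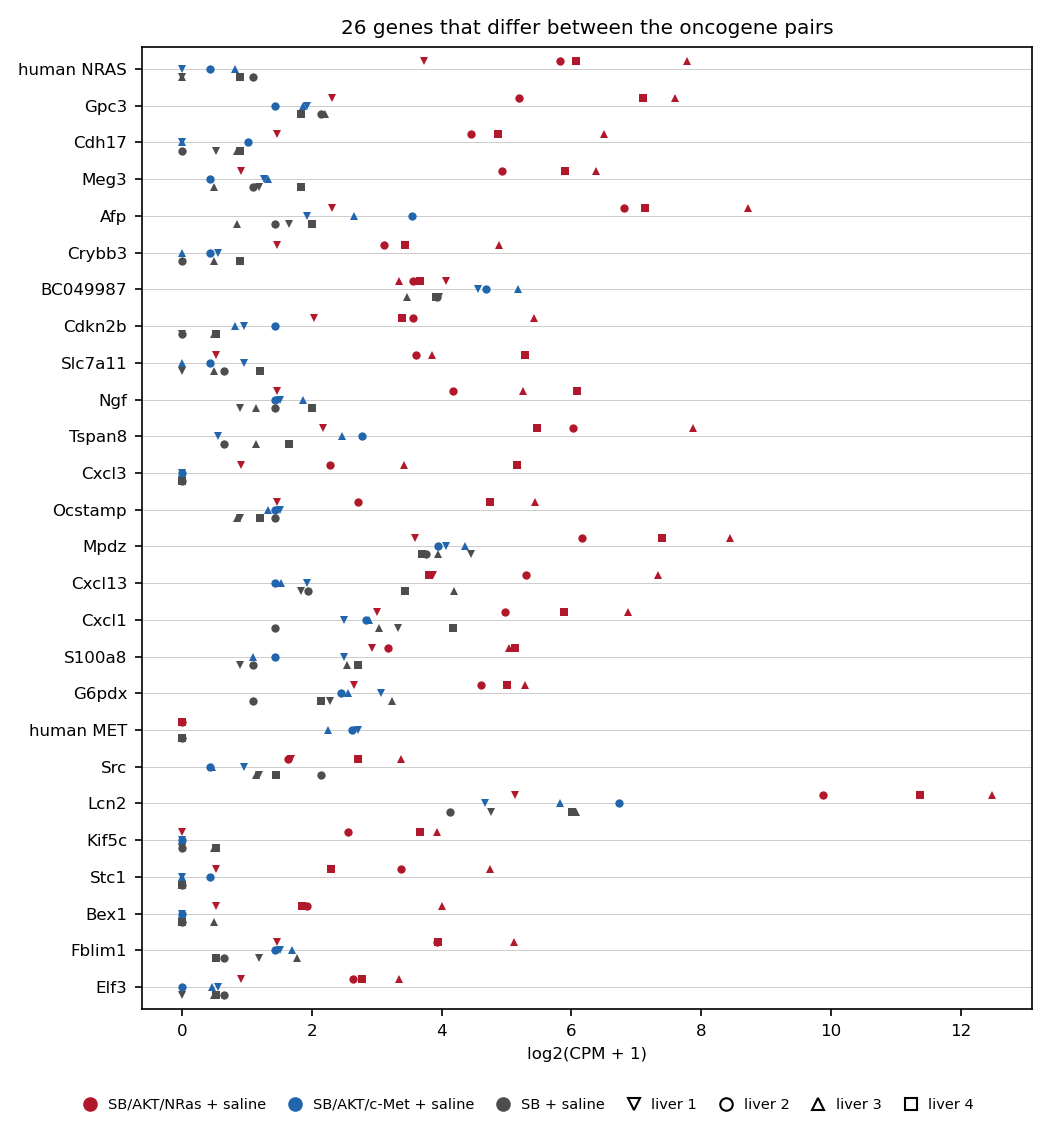
Level of genes called between SB/AKT/NRas + saline (red) and SB/AKT/c-Met + saline (blue) as log2(CPM + 1), 1 marker per liver, with the SB + saline livers in grey. AKT/NRas livers 2 to 4 lie above the AKT/c-Met livers for the 24 genes that were higher, and AKT/NRas liver 1 is the lowest of its group in each of these but Cxcl13 and Src.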

How the data were processed

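Liver RNA of 24 mice was sequenced from poly(A)-primed cDNA with unique molecular identifiers. The authors aligned reads with STAR to GRCm38 with human NRAS and MET added, removed duplicates by identifier and deposited counts per gene made with featureCounts on the forward strand at a mapping quality of 10 or more. The counts of 53467 genes were tested as deposited in edgeR 4.0.16 (R 4.3.3), by quasi-likelihood on 6 groups with TMM scaling and Benjamini-Hochberg adjustment over the 19381 genes kept. With 1 to 3 counts in the SB or SB/AKT/c-Met + saline livers a ratio with a 95% exact interval is given. The precision follows from 2152510 to 3060239 counts a library in the compared groups. Alternatives were limma-voom 3.58.1, DESeq2 1.42.0, other scalings and filters, a replicate block and omission of single livers. The script was tested on simulated data. Genes named are human NRAS, Nras, Akt1, the 12 that rose and the 12 that fell with the smallest p (non-overlapping livers, at least 5 CPM in the higher group), up to 6 members of a list in each direction, members with a known role, and up to 6 in each direction against SB/AKT/c-Met + saline. The SB/AKT/c-Met + saline values of Slc7a11, Cdkn2b and Cidea were chosen after they were seen. The members of the comparison, the lists and the tests were chosen with earlier results of these data known. The livers of the other 3 groups, whose mice had TAA, entered the filter on low counts, the scaling and the estimate of spread. The values of a few named genes are not reported here.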

Additional observations from a re-analysis of the deposited data

Results flagged for a closer look

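In 232 groups of 4 livers, those of the 116 genes whose levels are printed, 14 had a liver whose gap to the next, as a share of the range, exceeded Dixon's limit at 95%. Chance alone gives about 1 such group in 20. AKT/NRas liver 1 was low for Serpina7 (60.7 CPM) and Rfc3 (10.1 CPM) and high for Upb1 (215 CPM), and in each of these it lay nearest to the SB livers. AKT/NRas liver 3 was high for Spink1 (504 CPM) and Psat1 (38.9 CPM).

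Among the SB livers, liver 1 was high for Krt8 (101 CPM) and Cyp2a4 (8.13 CPM) and low for Cd68 (2.57 CPM), and liver 3 was low for BC049987 (10.0 CPM). In the remaining cases the value of the SB liver was that of 1 count. It was 0.428 CPM for Dusp5 and for Tnfrsf10b in liver 4, 0.401 CPM for H19 in liver 3 and 0.568 CPM for Tubb2b in liver 2, where the other SB livers had no count. For Mmp12 each SB liver had 1 count, and liver 2 was highest at 0.568 CPM because its library was the smallest.

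AKT/NRas livers differed from AKT/c-Met livers by the edgeR test of the difference itself in 14 of these genes, given as log2 fold changes. It was 7.69 for human NRAS, 6.39 for Cdh17, 5.33 for Meg3, 5.34 for Crybb3, 5.29 for Gpc3, 5.23 for Lcn2, 5.22 for Slc7a11, 4.72 for Afp, 4.50 for Tspan8, 3.80 for Cdkn2b, 3.09 for S100a8, 2.17 for G6pdx and −1.23 for BC049987. For human NRAS, Cdh17, Slc7a11 and Crybb3 the AKT/c-Met livers held 3 counts or fewer in all, so these fitted values depend on the prior count. For Cxcl3 the AKT/c-Met livers had no count, so the fitted value of 8.16 depends on it as well, and the level was at least 33.9-fold higher in the AKT/NRas livers.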

How the results depend on the processing

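Among the 261 genes named by the rule, 0 reversed direction while past the threshold under any alternative run. The count against SB + saline was 1168 and became 2241 with library size alone and 695 in a fit of only the compared groups, and 453 to 1978 without 1 liver each. The count against SB/AKT/c-Met + saline was 26. It became 1 with limma-voom, 62 with DESeq2, 6 with library size alone, 300 with no filter, 7 with filterByExpr, 0 in a fit of only the compared groups, and 0 to 284 without 1 liver each. The members of lists that rose or fell numbered 430 and became 256 in the fit of only the compared groups and 193 to 639 without 1 liver each, with 193 without AKT/NRas liver 3, 262 without SB liver 1 and 285 without SB liver 4. Of the 261 named genes 259 had an adjusted p under 0.05, and 150 to 259 did so without 1 liver each, SB + TAA liver 4 included. Adding the replicate number as a block gave 1093 called genes against SB + saline and 13 against SB/AKT/c-Met + saline. Livers with the same number did not deviate together (correlation −0.0483, −0.0279, 0.022 and −0.0264 for numbers 1 to 4), so they share only a number. The cause of the changes in these counts was not tested. Among single named genes, the adjusted p was no longer under 0.05 for 45 with limma-voom, 48 with library size alone, 76 in the fit of only the compared groups, 109 without AKT/NRas liver 3, 72 without SB liver 1 and 2 without AKT/NRas liver 1. Genes with few counts are the least precise at 2152510 to 3060239 counts a library, as for Dusp5, whose count ratio of 35.0 has an interval of 5.97 to 1411.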

Other observations

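Sult1b1, Dbt, Mpzl2 and 2010315B03Rik were also among the 12 genes with the smallest p that fell. Sult1b1, a sulfotransferase of thyroid hormones (ENSMUSG00000029269, chromosome 5, 87513339 to 87538195), had 14.5, 8.70, 4.26 and 12.04 CPM in the AKT/NRas livers, against 37.2, 36.9, 17.6 and 23.5 CPM in the SB livers (log2 fold change −1.56 ± 0.29, edgeR adjusted p = 0.00133, and −1.80 ± 0.30 without AKT/NRas liver 1). Dbt, a subunit of the enzyme that breaks down branched-chain keto acids (ENSMUSG00000000340, chromosome 3, 116513070 to 116549981), had 31.7, 25.4, 17.3 and 36.4 CPM in the AKT/NRas livers, against 59.9, 52.3, 63.8 and 54.8 CPM in the SB livers (log2 fold change −1.07 ± 0.20, edgeR adjusted p = 0.00168, and −1.14 ± 0.22 without AKT/NRas liver 1). Mpzl2, an adhesion protein of epithelia (ENSMUSG00000032092, chromosome 9, 45039799 to 45054015), had 9.23, 12.5, 8.24 and 12.04 CPM in the AKT/NRas livers, against 21.0, 23.9, 18.8 and 21.4 CPM in the SB livers (log2 fold change −1.01 ± 0.20, edgeR adjusted p = 0.00202, and −0.97 ± 0.21 without AKT/NRas liver 1). In Dbt and Mpzl2 liver 1 was not the highest of the AKT/NRas livers. 2010315B03Rik, a gene with no assigned role here (ENSMUSG00000074829, chromosome 9, 124291804 to 124312696), had 7.91, 7.66, 5.68 and 5.86 CPM in the AKT/NRas livers, against 15.8, 17.6, 13.6 and 19.3 CPM in the SB livers (log2 fold change −1.30 ± 0.24, edgeR adjusted p = 0.00123, and −1.38 ± 0.26 without AKT/NRas liver 1).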
